A study of Mus musculus with 45 samples.

Results

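The hepatic response to the highest dose of TCDD (the dioxin 2,3,7,8-tetrachlorodibenzo-p-dioxin) given in the series was described across all genes counted. The comparison took every sample labelled with a dose of 30 µg/kg TCDD, 5 livers, and every sample labelled as vehicle, 5 livers, of 45 livers in 9 dose groups. All mice were female C57BL/6 animals that received TCDD in sesame oil, or sesame oil alone, by oral gavage every 4 days for 28 days, and TCDD was the labelled difference between the groups. The labels also call the mice ovariectomized and use the word daily beside the interval of 4 days, neither of which is in the study's methods, and if the mice were ovariectomized this holds for both groups. The 5 livers labelled 10 µg/kg TCDD, from the same schedule, served as the next lower dose, and elsewhere TCDD livers means those at 30 µg/kg. RNA came from whole liver tissue, and no transgene or deletion is named for any group.

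TCDD is a ligand of the aryl hydrocarbon receptor (AhR), a transcription factor that resides in the cytosol, moves to the nucleus when a ligand binds, pairs with its partner ARNT and binds DNA at dioxin response elements with the core GCGTG. Its best known target genes encode cytochrome P450 enzymes of family 1 and phase II enzymes that oxidize and conjugate foreign compounds. In mice, TCDD is known to cause a fatty liver with inflammation, fibrosis and loss of body weight.

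Reads on genes numbered 14619385 to 20624724 in the vehicle livers and 11767284 to 25625466 in the TCDD livers, and precision was lowest for genes with few reads. Levels are given as CPM, the reads of a gene relative to the TMM-scaled reads on all genes of that liver, in the order of livers 1 to 5 of each group, and they compare a gene between livers but not 1 gene with another. Rose and fell are used of genes with an adjusted p under 0.05, and DEGs also had a |fold change| of at least 2. Errors of mean levels are SD over 5 livers. Errors of log2 fold changes are approximate standard errors (SE). Each is the absolute log2 fold change divided by the square root of the test's F statistic. A call is said to be lost, or passed, without a liver where leaving it out moved the adjusted p across 0.05. TCDD liver 4 stood apart from the other treated livers. On the first principal component of the 10 livers, which held 66.78% of the variance, it lay at 18.86, between the vehicle livers at -41.99 to -34.97 and the other TCDD livers at 39.02 to 45.49. Counts of list members that moved by over 1.5 times without it are given both ways. Markers of other cell types were checked in every liver. The summed share of reads on Kupffer cell markers was 0.0198 to 0.0321% in the vehicle livers and 0.0166 to 0.0485% in the TCDD livers, lowest in liver 4. Erythroid markers took 0.00689 to 0.0086% against 0.00868 to 0.0184%, and 6 of 7 of them rose. Hepatocyte markers took 12.5 to 16.1% against 11.3 to 16.2%, with *Alb* the largest, and 6 of 10 of them fell and 0 rose (3 fell and 1 rose without TMM scaling). Pancreatic acinar, muscle and gallbladder or intestinal markers took shares of reads near 0 in all livers. Muscle markers still took more after TCDD, at 0.000432 to 0.000647% against 0.000737 to 0.00102%, and 1 of 9 of them rose. This was *Acta1*, with 1 read over the vehicle livers and 248 over the TCDD livers. Libraries of random samples were pooled for sequencing, and no label names a sample's pool, so pool and dose cannot be told apart here.

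Of 17464 genes tested, 2700 rose (15.5%) and 2467 fell (14.1%), and 12297 did not pass. DEGs numbered 1402 higher genes (8.03%) and 597 lower genes (3.42%). Without TMM scaling the median of all genes moved from a log2 fold change of 0.02 to 0.23, and 4996 genes rose and 1222 fell, so that 80.35% of the calls were rises in place of 52.25%. Without TCDD liver 4, 2867 genes rose and 2626 fell. Protein-coding genes made up 14407 of the genes tested, and 2524 of them rose and 2252 fell. The higher DEGs together took a median of 0.924% of the reads in the vehicle livers and 5.16% in the TCDD livers, while the lower DEGs went from 9.19% to 3.11%. The plot of all genes shows the tests by level.

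**Figure D1:**
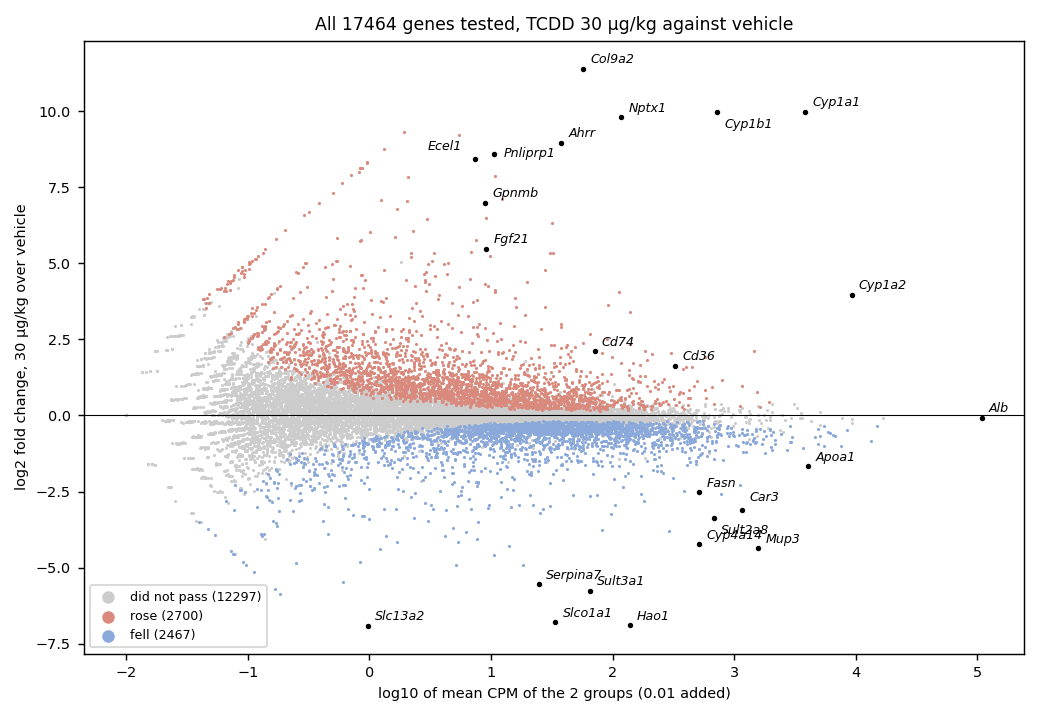
Log2 fold change of the 30 µg/kg over the vehicle livers (vertical axis) for all 17464 genes tested, against the log10 of the mean CPM of both groups with 0.01 added (horizontal axis). Red points rose (2700), blue points fell (2467) and grey points did not pass (12297), with named genes in black. The family 1 P450 genes *Cyp1a1* and *Cyp1b1* stand at the top at log2 fold changes of 9.98 and 9.97, and *Hao1* and *Slco1a1* lie near the bottom at -6.89 and -6.80.

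To describe the response by function, 65 gene lists with 1499 genes were used, and members are counted out of those tested. The lists and members were chosen with earlier results of these data known. A count beside the shares over all genes therefore describes a list and does not test it. Those shares also include genes with few reads, as 13490 of the 17464 genes had a mean of at least 10 reads. Genes were named by membership in these lists or by the size of their change under a rule given in the methods. Those named for the largest rise or fall had to show no overlap between groups, so their separation was set by the rule. Over all genes, 10.3% had every treated liver above every control and 9.57% had every treated liver below every control. Members that complete a count of 5 or fewer were named after their values had been seen, as were *Acaca*, *Acly*, *Adh4*, *Ahr*, *Aldh1a1*, *Aldh3a1*, *Arnt*, *Asns*, *Car1*, *Cbr3*, *Ccl22*, *Ces3a*, *Col4a3*, *Col4a4*, *Fgb*, *Foxm1*, *H2-Ab1*, *Hao2*, *Hk2*, *Hmgcs1*, *Hp*, *Hpd*, *Htra1*, *Itgax*, *Kcnj8*, *Khk*, *Ldha*, *Lgals3*, *Mmp12*, *Mt1*, *Nbl1*, *Nfe2l2*, *Nos2*, *Parm1*, *Pecam1*, *Psat1*, *Ptgs2*, *Slc2a2*, *Slc7a11*, *Spint1*, *Thbs1*, *Top2a*, *Trem2*, *Trpv4*, *Ugdh* and *Vwf*. Because the tissue was bulk liver, fewer cells of a type and less RNA per cell cannot be told apart in any value that follows.

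**Figure D2:**
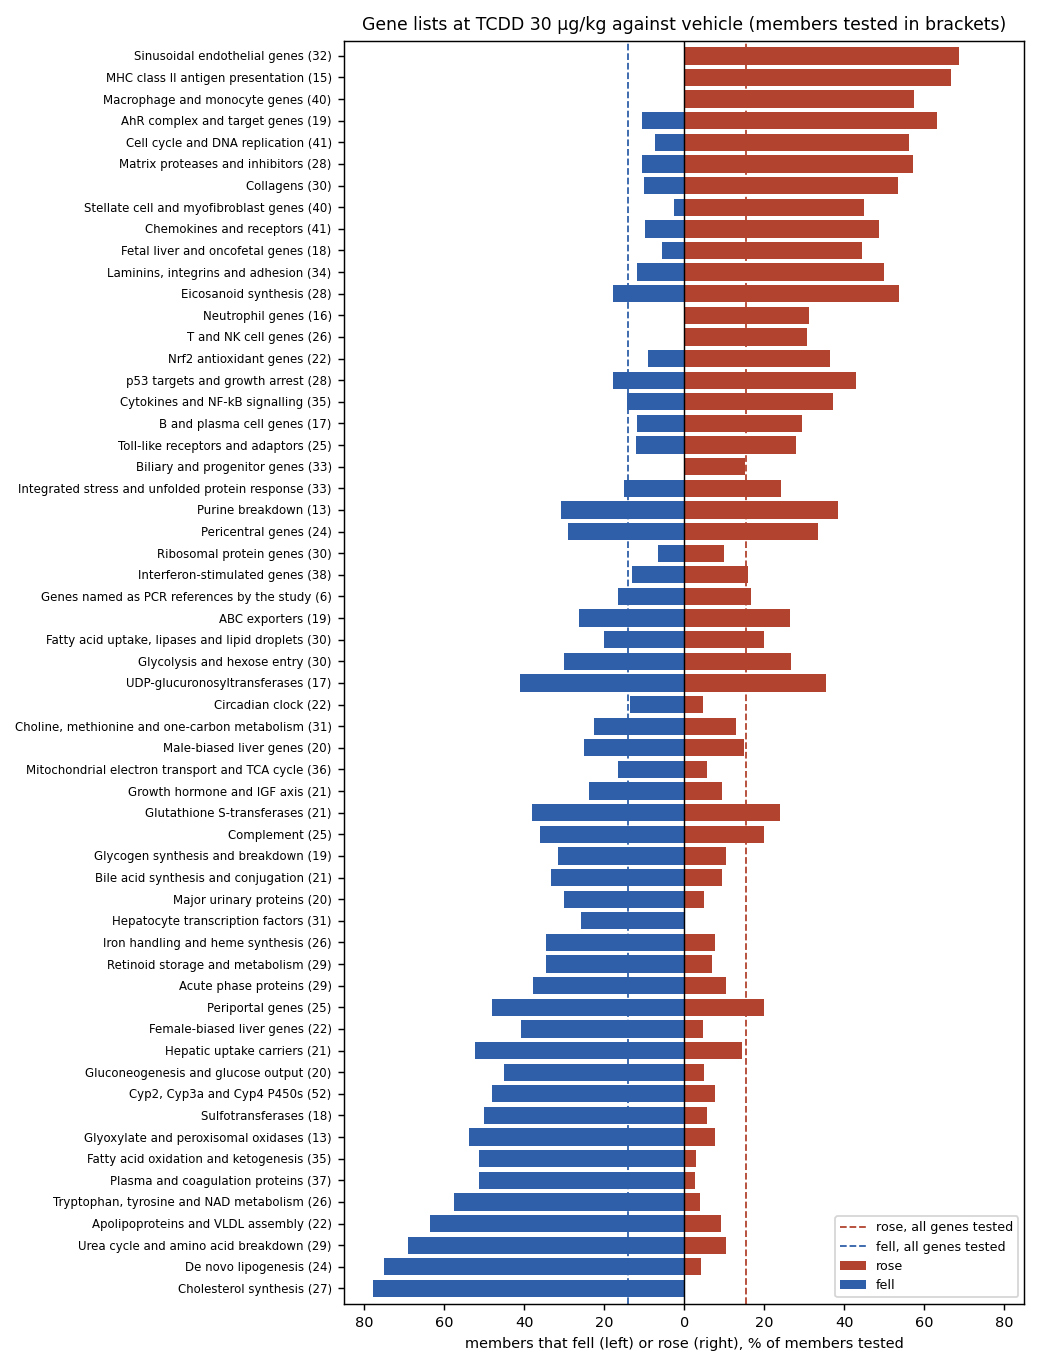
Share of each list's tested members that fell (blue, to the left) or rose (red, to the right) at 30 µg/kg, in percent, with the number tested in brackets. Dashed lines mark the shares over all genes, 14.1% falling and 15.5% rising. Without TMM scaling more members counted as rises in most lists. Cholesterol synthesis (21 of 27 fell) and de novo lipogenesis (18 of 24 fell) lie far to the left, and sinusoidal endothelial genes (22 of 32 rose) and MHC class II genes (10 of 15 rose) far to the right.

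The AhR battery held steep rises of abundant transcripts. Of 19 genes of the receptor complex and its known targets, 12 rose and 2 fell, beside 15.5% and 14.1% of all genes, and the median log2 fold change was 2.01 beside 0.02 over all genes. *Cyp1a1*, which encodes the P450 most used as a sign of AhR activation (chr9:57687928-57703824, plus strand), was 2.90, 1.33, 5.49, 16.6 and 11.1 CPM in the vehicle livers and 7283, 6020, 7281, 9064 and 8489 CPM in the TCDD livers. Every treated liver was far above every control. Its log2 fold change (log2 FC) over the vehicle was 9.98 ± 0.83 (adjusted p = 1.07e-12). The neighbouring *Cyp1a2* (chr9:57676937-57683703, minus strand), a P450 that also binds TCDD and holds it in the liver, was already well expressed without TCDD, at 1040, 942, 1094, 1221 and 1228 CPM, and stood at 17320, 15590, 15490, 18550 and 19860 CPM with it, a 15.7-fold rise (log2 FC 3.97 ± 0.15, adjusted p = 9.9e-24). *Cyp1b1* (chr17:79701537-79715061, minus strand), a member of the family used mainly outside the liver, went from 0.849, 0.636, 0.616, 2.48 and 2.48 CPM to 1714, 1215, 1277, 1769 and 1284 CPM (log2 FC 9.97 ± 0.71, adjusted p = 1.02e-14). Both *Cyp1a2* and *Cyp1b1* were separated from the controls in all 5 livers, liver 4 included. The genes for proteins that restrain the receptor also rose. *Ahrr*, the AhR repressor (chr13:74211118-74292331, minus strand), was 0.141, 0.127, 0.0616, 0.0619 and 0.303 CPM in the vehicle livers and 93.2, 63.6, 73.5, 90.4 and 56.3 CPM in the TCDD livers (log2 FC 8.96 ± 0.49, adjusted p = 2.58e-18). *Tiparp*, a mono-ADP-ribosyltransferase that modifies AhR, was 13.7, 16.5, 15.5, 11.7 and 11.02 CPM and 174, 164, 189, 130 and 192 CPM (log2 FC 3.63 ± 0.18, adjusted p = 3.01e-19). No treated liver overlapped a control for either gene.

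The receptor itself and its partner did not pass. *Ahr* was 63.8, 60.1, 97.4, 76.5 and 70.4 CPM in the vehicle livers and 67.8, 56.7, 78.5, 77.6 and 60.4 CPM in the TCDD livers (log2 FC -0.11 ± 0.21, adjusted p = 0.737), and *Arnt* was 47.4, 65.2, 60.1, 60.8 and 59.7 CPM and 45.7, 52.0, 56.9, 69.2 and 53.1 CPM (log2 FC -0.08 ± 0.14, adjusted p = 0.707). The groups overlapped for both, and *Cyp2s1* and *Socs2* were among the other members that did not pass. *Nqo1*, a quinone reductase shared with the Nrf2 battery, was 17.0, 18.2, 13.3, 22.6 and 13.9 CPM and 87.5, 67.8, 50.6, 56.5 and 80.3 CPM (log2 FC 2.01 ± 0.19, adjusted p = 1.53e-11). *Ugdh*, which makes the UDP-glucuronic acid that glucuronosyltransferases use, was 218, 205, 153, 201 and 197 CPM and 693, 571, 520.4, 495 and 520.3 CPM (log2 FC 1.52 ± 0.15, adjusted p = 1.05e-10). Neither overlapped between groups. *Aldh3a1*, a detoxifying aldehyde dehydrogenase, had 0 reads in the vehicle livers and 59 in the TCDD livers, at least 16.4-fold higher over the group (adjusted p = 7.38e-06). The members that fell were *Inmt*, an indolethylamine methyltransferase, and *Fmo2*, a flavin monooxygenase. *Inmt* was 1214, 1302, 1469, 1223 and 1430 CPM in the vehicle livers and 202, 112, 233, 361 and 209 CPM in the TCDD livers (log2 FC -2.57 ± 0.26, adjusted p = 1.93e-10).

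The promoters of the highest-rising AhR genes with a RefSeq entry were searched for GCGTG on either strand. They are shown because GCGTG is the core of the site that AhR and ARNT bind. Each runs from 250 bases before to 50 after the start site in RefSeq GRCm38.p6, 5′ to 3′ along the gene's strand, with matches in capitals, written CACGC where the match is on the other strand. The windows are chr9:57697363-57697662 on the plus strand, chr17:79715012-79715311 on the minus strand and chr13:74292282-74292581 on the minus strand.
Cyp1a1: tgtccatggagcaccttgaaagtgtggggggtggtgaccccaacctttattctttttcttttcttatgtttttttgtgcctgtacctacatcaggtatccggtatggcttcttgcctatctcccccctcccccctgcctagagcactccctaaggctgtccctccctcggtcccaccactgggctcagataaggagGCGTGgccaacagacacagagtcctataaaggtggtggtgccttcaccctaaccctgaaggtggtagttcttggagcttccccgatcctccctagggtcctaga
Cyp1b1: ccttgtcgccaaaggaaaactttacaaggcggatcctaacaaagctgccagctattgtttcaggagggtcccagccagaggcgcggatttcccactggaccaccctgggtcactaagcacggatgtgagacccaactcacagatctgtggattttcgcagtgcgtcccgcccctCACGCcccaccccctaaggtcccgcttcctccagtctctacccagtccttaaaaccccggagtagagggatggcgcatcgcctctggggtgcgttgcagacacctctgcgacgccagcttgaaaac
Ahrr: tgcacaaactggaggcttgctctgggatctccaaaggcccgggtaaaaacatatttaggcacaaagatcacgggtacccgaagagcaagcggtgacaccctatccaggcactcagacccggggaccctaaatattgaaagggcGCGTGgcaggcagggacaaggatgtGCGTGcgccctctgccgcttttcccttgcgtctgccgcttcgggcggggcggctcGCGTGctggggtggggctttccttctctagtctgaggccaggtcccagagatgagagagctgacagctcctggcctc
The *Cyp1a1* and *Cyp1b1* windows held 1 match each, at -54 and -76 from the start, and that of *Ahrr* held 3, at -107, -82 and -27. The motif was present in 52.2% of the 11932 promoters with an entry, in 8 of 14 promoters of the AhR list, in 43.0% of those of higher DEGs and in 39.9% of those of lower DEGs. A match describes these letters only.

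Beyond family 1, the enzymes that handle foreign compounds moved in both directions. In the Nrf2 antioxidant list, 8 of 22 rose and 2 fell, *Me1* and *Prdx1*, with a median log2 fold change of 0.17 (13 rose and 1 fell without TMM scaling). *Me1* (adjusted p = 0.0109) lost its call without vehicle liver 1, at 0.0663, and without TMM scaling, at 0.061. *Nfe2l2*, which encodes Nrf2, was 82.2, 88.2, 93.9, 79.03 and 88.5 CPM in the vehicle livers and 245, 187, 205, 179 and 201 CPM in the TCDD livers (log2 FC 1.24 ± 0.09, adjusted p = 3.51e-14), with every treated liver above every control. *Srxn1*, sulfiredoxin, rose as well (log2 FC 0.88 ± 0.13, adjusted p = 1.62e-06), while *Gclc* and *Txnrd1*, glutathione synthesis and thioredoxin reduction, did not pass (log2 FC 0.21 ± 0.22, adjusted p = 0.513 and log2 FC 0.17 ± 0.10, adjusted p = 0.212, passed without TMM scaling, at 0.00314). *Gpx2*, a glutathione peroxidase of the gut epithelium, had 2 reads over the vehicle livers and 327 over the TCDD livers, a ratio of 136.4 (95% counting interval 37.45 to 1131). *Slc7a11*, the cystine carrier, had 1 and 15 reads, a ratio of 12.5 (counting interval 1.925 to 526.6, adjusted p = 0.0281, lost without TCDD liver 1, 2 or 5 or vehicle liver 2, 3, 4 or 5, at up to 0.0681).

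Glutathione S-transferases and UDP-glucuronosyltransferases, both conjugating enzymes, each held rises and falls. Among glutathione S-transferases, 5 of 21 rose (*Gsta1*, *Gstp1*, *Gstp2*, *Gstm2* and *Gstm3*) and 8 fell, with a median of -0.19 that became 0.01 without TMM scaling. *Gstp2* (adjusted p = 0.0141) lost its call without TCDD liver 2 or vehicle liver 5, at up to 0.0664. *Gstp1* went from 68.3, 53.5, 49.3, 47.8 and 55.5 CPM to 149.7, 172, 127, 156 and 93.5 CPM (log2 FC 1.35 ± 0.16, adjusted p = 9.2e-09), and *Gstm6* from 129, 94.0, 94.2, 106 and 113 CPM to 38.5, 29.4, 34.0, 56.6 and 30.9 CPM (log2 FC -1.50 ± 0.16, adjusted p = 1.19e-09). The Gstp and Gstm genes have close copies between which reads may have been lost or split. Of 17 UDP-glucuronosyltransferases, 6 rose and 7 fell, with a median of -0.21 that became 0.00 without TMM scaling. *Ugt1a7c* was 0.0708, 0.127, 0.308, 0.248 and 0.152 CPM in the vehicle livers and 6.85, 6.81, 4.95, 5.35 and 5.45 CPM in the TCDD livers (log2 FC 4.96 ± 0.38, adjusted p = 8.96e-14), whereas *Ugt1a5* was 105, 151, 73.2, 164 and 52.5 CPM and 28.99, 19.1, 24.1, 38.7 and 34.2 CPM (log2 FC -1.91 ± 0.29, adjusted p = 2.08e-06). The treated livers lay wholly above the controls for the first and wholly below them for the second. The Ugt1a genes share their last exons, so only reads on their own first exons separate them.

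The sulfotransferases, which attach sulfate to steroids, bile acids and drugs, fell more than they rose. Of 18, 9 fell and only *Sult5a1* rose, with a median of -0.79 (2 rose without liver 4 and also without TMM scaling). *Sult2a8*, a hepatic bile acid sulfotransferase, was 1031, 1250, 1496, 1039 and 1385 CPM in the vehicle livers and 67.9, 92.7, 136, 239 and 61.5 CPM in the TCDD livers (log2 FC -3.38 ± 0.26, adjusted p = 8.96e-14). *Sult3a1*, a female-biased member, was 97.4, 171, 155, 87.3 and 129 CPM and 0.676, 0.687, 1.59, 8.41 and 0.401 CPM (log2 FC -5.76 ± 0.54, adjusted p = 2.22e-11, log2 FC -7.12 without TCDD liver 4), and *Sult2a7* was 47.8, 21.2, 21.8, 44.1 and 43.3 CPM and 0.857, 0.687, 0.778, 3.18 and 0.321 CPM (log2 FC -4.92 ± 0.60, adjusted p = 1.97e-08, log2 FC -5.67 without TCDD liver 4). For all 3 the groups did not overlap, which the rule that named some of them asked for (over all genes 9.57% had every treated liver lower than every control), and liver 4 kept the most of each. *Sult5a1* went the other way, from 20.5, 18.1, 33.7, 10.4 and 36.4 CPM to 237, 228, 249.4, 254 and 293 CPM (log2 FC 3.40 ± 0.31, adjusted p = 8.08e-12). *Sult3a2* had 154 reads over the vehicle livers and 1 over the TCDD livers, a ratio of 184.7 (counting interval 32.65 to 7341). The Sult2a genes are close copies of each other.

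Of 52 P450 genes of families 2, 3a and 4, 25 fell and 4 rose (*Cyp2c29*, *Cyp2c55*, *Cyp2d9* and *Cyp4a31*), with a median of -0.44 (7 rose and 22 fell without TMM scaling). *Cyp2c29* (adjusted p = 0.0378) lost its call without TCDD liver 1, 2, 3 or 5 or vehicle liver 3 or 5, at up to 0.111. *Cyp4a14*, a fatty acid omega-hydroxylase under PPARα control, was 1112, 968, 987, 822 and 992 CPM in the vehicle livers and 89.8, 48.8, 57.9, 33.5 and 30.1 CPM in the TCDD livers (log2 FC -4.23 ± 0.49, adjusted p = 4.95e-09). *Cyp2e1*, a pericentral P450 of ethanol and acetone oxidation, fell less, with overlapping groups (log2 FC -0.48 ± 0.16, adjusted p = 0.0224, lost without TCDD liver 5 or vehicle liver 2 or 3, at up to 0.078, and lost without TMM scaling, at 0.178). *Cyp2b10* and *Cyp3a11*, usual targets of the receptors CAR and PXR, did not pass (log2 FC 0.39 ± 0.36, adjusted p = 0.449 and log2 FC -0.10 ± 0.17, adjusted p = 0.712). *Cyp2d9*, which has close copies, was 88.9, 76.4, 93.4, 65.2 and 92.1 CPM and 329, 284, 281, 488 and 319 CPM (log2 FC 2.03 ± 0.28, adjusted p = 2.9e-07), all treated livers above all controls.

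Carriers that take compounds up from blood fell in 11 of 21 cases, and *Slc13a3*, *Slc22a3* and *Slc22a7* rose, with a median of -0.65 (6 rose and 10 fell without TMM scaling). *Slc10a1*, the bile acid carrier NTCP, was 888, 1069, 844, 1089 and 909 CPM in the vehicle livers and 515, 516, 597, 826 and 600.5 CPM in the TCDD livers (log2 FC -0.65 ± 0.12, adjusted p = 3.32e-05), and *Slco1b2* also fell (log2 FC -0.90 ± 0.13, adjusted p = 1.26e-06). Neither overlapped. *Slco1a1* was uneven in the controls, at 20.2, 70.8, 188, 7.43 and 49.2 CPM, and nearly absent after TCDD, at 0.0902, 1.03, 0.424, 1.34 and 0.160 CPM (log2 FC -6.80 ± 1.11, adjusted p = 6.46e-06, log2 FC -5.94 without vehicle liver 3). *Slc13a2*, a citrate and succinate carrier, had 160 reads over the vehicle livers and 1 over the TCDD livers, while *Slc13a3*, the related dicarboxylate carrier, was 11.8, 14.3, 15.3, 17.2 and 11.7 CPM and 66.1, 68.4, 65.0, 57.9 and 95.6 CPM (log2 FC 2.33 ± 0.24, adjusted p = 2.17e-10). Of 19 ABC exporters, 5 rose (*Abcb4*, *Abcc1*, *Abcc4*, *Abcc5* and *Abcg1*) and 5 fell, among them *Abcb1a*, *Abcc6*, *Abcd3* and *Abcg8* (8 rose and 3 fell without TMM scaling). *Abcb4* (adjusted p = 0.0283) lost its call without TCDD liver 2 or 3 or vehicle liver 1, 4 or 5, at up to 0.232. *Abcg8* lost its call without TMM scaling, at adjusted p = 0.0889. *Abcc4*, which exports bile acids back into blood, was 3.54, 3.62, 3.94, 6.498 and 5.16 CPM and 27, 23.98, 14.7, 7.69 and 18.8 CPM (log2 FC 2.01 ± 0.35, adjusted p = 1.62e-05), with liver 4 lowest of the treated livers, and the bile salt export pump *Abcb11* did not pass (log2 FC -0.54 ± 0.25, adjusted p = 0.104). In bile acid synthesis and conjugation 7 of 21 fell and *Acox2* and *Scp2* rose, with a median of -0.42. *Scp2* (adjusted p = 0.0483) lost its call without TCDD liver 1, 2, 3 or 4 or vehicle liver 1, 3, 4 or 5, at up to 0.169. *Cyp7a1*, the rate-limiting enzyme, varied widely within both groups, at 247, 204, 510.0, 744 and 534 CPM and 213, 156, 253, 583 and 182 CPM, and did not pass (log2 FC -0.69 ± 0.68, adjusted p = 0.484). *Cyp8b1* did not pass (log2 FC -0.10 ± 0.27, adjusted p = 0.813), while *Cyp27a1* of the alternative route fell (log2 FC -0.64 ± 0.18, adjusted p = 0.00457) and *Akr1c6*, a hydroxysteroid dehydrogenase, fell without overlap (log2 FC -1.20 ± 0.12, adjusted p = 1.09e-10). *Cyp7b1* did not pass with all livers (log2 FC -0.42 ± 0.17, adjusted p = 0.0516, passed without TCDD liver 4 or vehicle liver 1, at 0.00194 and 0.0462).

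Lipid synthesis genes fell across most of the pathway. In de novo lipogenesis, which turns glucose carbon into fatty acids, 18 of 24 genes fell and only the elongase *Elovl5* rose, with a median of -1.07 (2 rose and 14 fell without TMM scaling). *Fasn*, fatty acid synthase, was 1144, 644, 466, 1574 and 569 CPM in the vehicle livers and 149, 88.5, 152, 207 and 172 CPM in the TCDD livers (log2 FC -2.52 ± 0.36, adjusted p = 4.21e-07). *Acly*, which makes cytosolic acetyl-CoA from citrate, was 638, 407, 288, 881 and 304 CPM and 113, 99.2, 119, 133 and 139 CPM (log2 FC -2.06 ± 0.29, adjusted p = 3.12e-07), and *Acaca*, acetyl-CoA carboxylase, was 63.8, 50.6, 38.4, 72.4 and 45.5 CPM and 22.7, 16.9, 19.9, 28.02 and 18.4 CPM (log2 FC -1.35 ± 0.17, adjusted p = 3.78e-08). The controls spread over a wide range for all 3, and every treated liver still lay below every control. *Srebf1*, which encodes the lipogenic factor SREBP-1, fell by 1.26 on the log2 scale (SE 0.22, adjusted p = 2.21e-05). *Pnpla3*, a lipogenic lipid-droplet hydrolase, was 16.6, 2.99, 5.12, 20.5 and 5.16 CPM and 0.316, 0.286, 0.778, 0.724 and 0.641 CPM (log2 FC -4.17 ± 0.71, adjusted p = 1.28e-05). *Scd1*, the stearoyl-CoA desaturase, fell with overlapping groups (log2 FC -1.01 ± 0.35, adjusted p = 0.0238, lost without TCDD liver 2, 3 or 5 or vehicle liver 1, 2 or 4, at up to 0.0787, and lost without TMM scaling, at 0.0562). *Elovl5*, which lengthens polyunsaturated fatty acids, was 720.1, 455, 352, 495 and 429 CPM and 1264, 1127, 1128, 984 and 1030 CPM (log2 FC 1.18 ± 0.21, adjusted p = 2.96e-05).

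Cholesterol synthesis followed the same direction, with 21 of 27 genes lower, 0 higher and a median of -0.77. *Fdps*, farnesyl diphosphate synthase, was 89.2, 88.6, 52.6, 95.2 and 59.2 CPM in the vehicle livers and 24.2, 23.2, 26.3, 37.2 and 23.6 CPM in the TCDD livers (log2 FC -1.51 ± 0.24, adjusted p = 3.84e-06), and *Hmgcs1*, the HMG-CoA synthase, was 897, 948, 422, 656 and 629 CPM and 362, 250, 227, 211 and 207 CPM (log2 FC -1.50 ± 0.36, adjusted p = 0.0013). Both were separated between groups. *Sqle*, squalene epoxidase, fell with some overlap (log2 FC -0.99 ± 0.25, adjusted p = 0.00245).

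Fatty acid breakdown had a median nearer to that of all genes than synthesis had. In oxidation and ketogenesis 18 of 35 fell and only *Fgf21*, a fasting-related hormone, rose, with a median of -0.22 that became 0.00 without TMM scaling (5 rose and 11 fell there). The carnitine acetyltransferase *Crat* had the largest fall among members named by the rule, from 33.5, 37.2, 30.4, 30.1 and 36.9 CPM in the vehicle livers to 7.71, 12.9, 7.32, 6.35 and 8.74 CPM in the TCDD livers (log2 FC -1.97 ± 0.29, adjusted p = 8.06e-07). *Cpt1a*, the gate of mitochondrial oxidation, and *Ppara* did not pass (log2 FC 0.18 ± 0.23, adjusted p = 0.618 and log2 FC -0.22 ± 0.24, adjusted p = 0.518). *Fgf21* was 0.0708, 0.509, 0.370, 0.309 and 0.657 CPM in the vehicle livers and 17.8, 35.5, 16.1, 2.73 and 17.6 CPM in the TCDD livers (log2 FC 5.48 ± 0.58, adjusted p = 5.8e-10), with liver 4 lowest of the treated livers and all 5 above the controls.

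Genes that bring in, split or store fatty acids moved in both directions. Of 30 genes for fatty acid uptake, lipases and lipid droplets, 6 rose and 6 fell, with a median of 0.26 (12 rose and 5 fell without TMM scaling). These shares, 20% each, were near the 15.5% and 14.1% of all genes. *Cd36*, the fatty acid translocase, was 162, 144, 109.8, 232 and 147 CPM in the vehicle livers and 561, 534, 457, 474 and 436 CPM in the TCDD livers (log2 FC 1.63 ± 0.18, adjusted p = 1.77e-09). *Lpl*, lipoprotein lipase, which adult liver holds at a low level, was 28.7, 13.9, 13.7, 12.9 and 16.4 CPM and 108, 76.8, 84.3, 74.7 and 61.0 CPM (log2 FC 2.25 ± 0.34, adjusted p = 1.45e-06). No treated liver overlapped a control for either. The droplet coat gene *Plin2* did not pass (log2 FC 0.05 ± 0.22, adjusted p = 0.889). In the export of lipid, 14 of 22 apolipoprotein and VLDL assembly genes fell and *Lcat* and *Apobr* rose, with a median of -0.51. *Apoa1*, the main protein of HDL, was 5579, 6609, 7473, 5546 and 5687 CPM and 1322, 2248, 2409, 2340 and 1374 CPM (log2 FC -1.67 ± 0.23, adjusted p = 2.36e-07), and *Apoe* was 16760, 18240, 15640, 16070 and 18480 CPM and 9287, 8708, 9213, 10070 and 10530 CPM (log2 FC -0.83 ± 0.09, adjusted p = 3.89e-10). Both groups were fully separated for each gene. *Mttp*, which loads lipid onto apoB, fell without overlap (log2 FC -0.54 ± 0.10, adjusted p = 2.31e-05), and *Apob* fell with overlap (log2 FC -0.44 ± 0.12, adjusted p = 0.00461, lost without TMM scaling, at 0.159).

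In glucose handling, enzymes of the same step moved in opposite directions. Of 30 genes of glycolysis and hexose entry, 8 rose and 9 fell, with a median of -0.12 that became 0.09 without TMM scaling. *Pklr*, the liver pyruvate kinase, was 368, 287, 259, 431 and 228 CPM in the vehicle livers and 45.7, 40.1, 42.8, 56.3 and 41.4 CPM in the TCDD livers (log2 FC -2.80 ± 0.24, adjusted p = 2.85e-12). *Pkm*, the pyruvate kinase of other tissues, was 7.08, 4.07, 4.93, 4.70 and 4.50 CPM and 25.7, 24.5, 24.6, 23.1 and 27.5 CPM (log2 FC 2.31 ± 0.23, adjusted p = 7.3e-11). The liver form was lower and the other form higher in all 5 treated livers than in all 5 controls, and 21.97% of the exon bases of *Pklr* also lie in *Hcn3*. *Hk2*, a hexokinase of muscle and tumours, was 1.70, 1.27, 1.42, 0.928 and 1.52 CPM and 4.10, 4.81, 4.99, 2.90 and 4.49 CPM (log2 FC 1.64 ± 0.31, adjusted p = 5.54e-05). *Khk*, which starts fructose breakdown, was 520.1, 369, 332, 409 and 409 CPM and 106, 77.3, 105, 160.0 and 97.3 CPM (log2 FC -1.90 ± 0.17, adjusted p = 6.64e-12). All 5 treated livers were above the controls for *Hk2* and below them for *Khk*. The carrier gene *Slc2a2* (GLUT2) fell (log2 FC -1.06 ± 0.16, adjusted p = 1.34e-06) and *Ldha*, lactate dehydrogenase A, rose (log2 FC 0.76 ± 0.16, adjusted p = 0.000296).

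**Figure D3:**
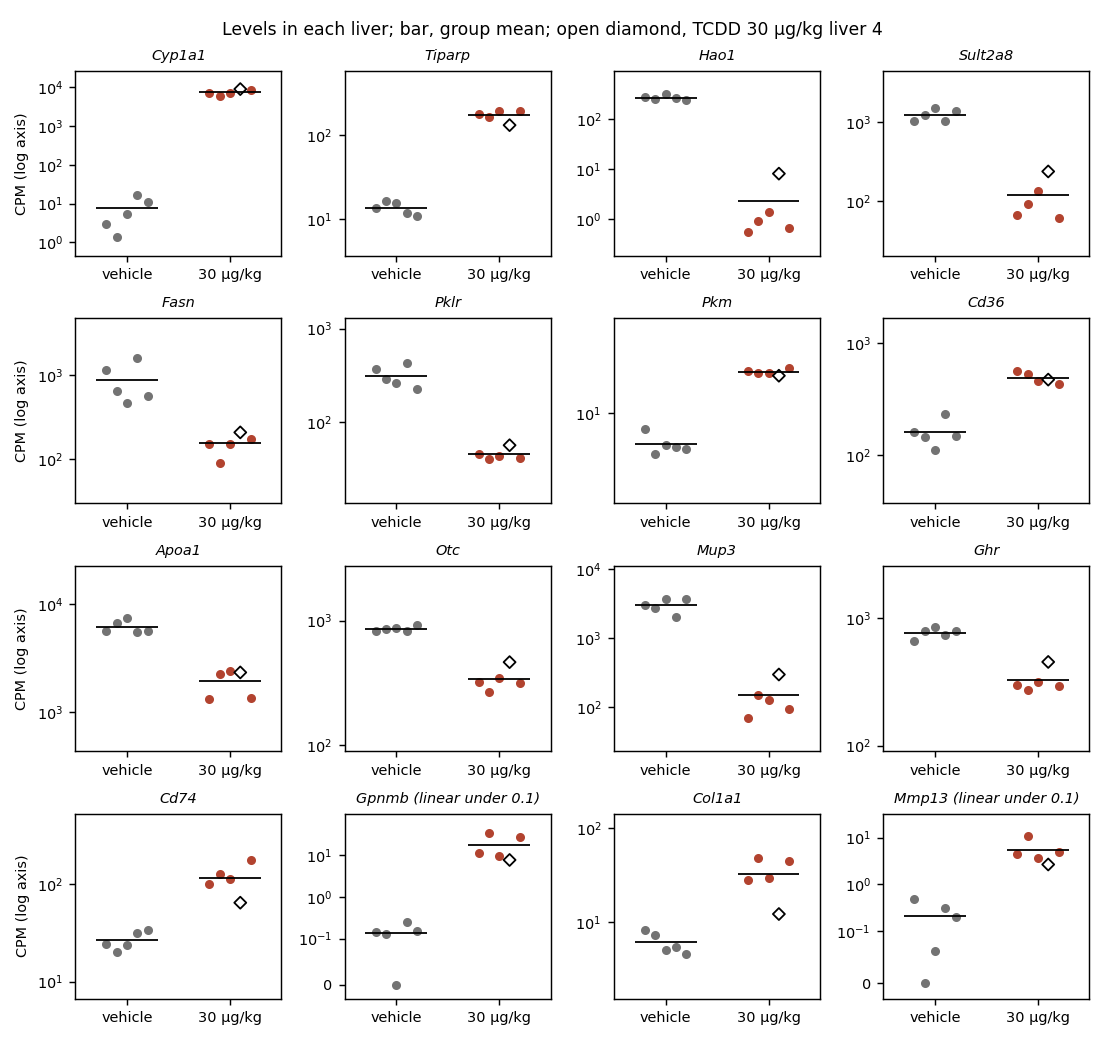
CPM of 16 genes in each of the 5 vehicle livers and the 5 livers at 30 µg/kg, on log axes (linear under 0.1 where a liver had 0 reads), with a bar at each group's mean and an open diamond for TCDD liver 4. In every panel the 2 groups are separated, which the rule that named some of these genes asked for. Liver 4 is the treated liver nearest to the controls for genes such as *Hao1*, *Sult2a8*, *Mup3*, *Gpnmb* and *Mmp13*, but not for *Cyp1a1*, where it is the highest.

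In gluconeogenesis and glucose output 9 of 20 fell and only *Fbp1* rose, with a median of -0.40 (3 rose and 4 fell without TMM scaling). *Fbp1*, fructose bisphosphatase, was 1231, 1154, 953, 1349 and 1041 CPM in the vehicle livers and 1876, 2006, 1788, 1705 and 2333 CPM in the TCDD livers (log2 FC 0.76 ± 0.12, adjusted p = 1.79e-06). The treated livers were all higher. *Pck1* and *G6pc*, the first and last committed steps, varied within groups and did not pass (log2 FC -0.55 ± 0.38, adjusted p = 0.292 and log2 FC 0.37 ± 0.66, adjusted p = 0.719). Among glycogen genes 6 of 19 fell and *Pgm2* and *Phkb* rose, with a median of -0.20 that became 0.01 without TMM scaling. *Ugp2*, which makes UDP-glucose, fell by 1.16 on the log2 scale (SE 0.18, adjusted p = 2.12e-06), the liver phosphorylase *Pygl* fell (log2 FC -0.77 ± 0.14, adjusted p = 5.17e-05), and the synthase *Gys2* did not pass (log2 FC -0.75 ± 0.32, adjusted p = 0.0753). Electron transport and TCA cycle genes moved little, with 2 of 36 higher (*Suclg1* and *Ndufv1*), 6 lower and a median of -0.14 that became 0.07 without TMM scaling (8 rose and 1 fell there). Genes of the mitochondrial genome took a median of 6.58% of reads in the vehicle livers and 6.07% in the TCDD livers.

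One peroxisomal enzyme was nearly lost. *Hao1*, the hydroxyacid oxidase that turns glycolate into glyoxylate (chr2:134497361-134554368, minus strand), was 283, 254, 316, 271 and 242 CPM in the vehicle livers and 0.541, 0.916, 1.34, 8.08 and 0.641 CPM in the TCDD livers. Liver 4 held several times the level of the other treated livers and was still far under every control. The fold was 119 in favour of the vehicle (log2 FC -6.89 ± 0.41, adjusted p = 4.11e-17, log2 FC -8.24 without TCDD liver 4). The related *Hao2* was 30.1, 18.8, 20.6, 33.4 and 16.5 CPM and 8.61, 2.58, 8.06, 5.46 and 4.33 CPM (log2 FC -2.01 ± 0.55, adjusted p = 0.00466). In the list of glyoxylate and peroxisomal oxidases 7 of 13 fell and only *Ldhd*, a D-lactate dehydrogenase whose exons overlap *Znrf1* over 42.2% of their bases, rose, with a median of -0.39. *Agxt*, which removes glyoxylate, was lower in every treated liver but did not pass (log2 FC -0.44 ± 0.19, adjusted p = 0.0774, passed without TCDD liver 4, at 0.0466).

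Enzymes of amino acid and nitrogen metabolism fell broadly. In the urea cycle and amino acid breakdown 20 of 29 fell and 3 rose, *Nags* and *Ivd* among them, with a median of -0.55 (3 rose and 13 fell without TMM scaling). *Otc*, ornithine transcarbamylase, was 819, 862, 867, 827 and 917 CPM in the vehicle livers and 322, 268, 346, 464 and 313 CPM in the TCDD livers (log2 FC -1.33 ± 0.11, adjusted p = 3.04e-13). *Cps1*, which makes carbamoyl phosphate for the cycle, was 6501, 7638, 6169, 10590 and 5485 CPM and 2596, 2271, 4001, 5709 and 3704 CPM, with liver 4 overlapping the lowest control (log2 FC -0.99 ± 0.21, adjusted p = 0.000326), and *Arg1* did not pass (log2 FC -0.15 ± 0.17, adjusted p = 0.56). For tryptophan, tyrosine and NAD metabolism 15 of 26 fell and only *Cd38*, an NAD hydrolase also found on immune cells, rose, with a median of -0.45 (1 rose and 9 fell without TMM scaling). *Afmid*, kynurenine formamidase, was 45.4, 70.97, 61.2, 76.7 and 62.4 CPM and 8.20, 7.04, 11.7, 28.97 and 17.7 CPM (log2 FC -2.11 ± 0.24, adjusted p = 2.63e-09), *Kynu* fell with overlap (log2 FC -0.58 ± 0.19, adjusted p = 0.0179, lost without vehicle liver 1 or 4, at up to 0.0675, and lost without TMM scaling, at 0.139), *Hpd* of tyrosine breakdown fell (log2 FC -0.60 ± 0.13, adjusted p = 0.000399), and *Tdo2* and *Tat* did not pass (log2 FC -0.14 ± 0.15, adjusted p = 0.546 and log2 FC -0.67 ± 0.39, adjusted p = 0.207). *Afmid* shares 44.3% of its exon bases with a same-strand gene model.

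Of 31 genes for choline, methionine and one-carbon metabolism 7 fell and 4 rose (*Psat1*, *Mthfd2*, *Chdh* and *Aldh7a1*), with a median of -0.06 that became 0.15 without TMM scaling. *Shmt1*, the cytosolic serine hydroxymethyltransferase, was 258, 278, 276, 326 and 321 CPM in the vehicle livers and 122, 102, 124, 152 and 130.5 CPM in the TCDD livers (log2 FC -1.21 ± 0.10, adjusted p = 5.25e-13). *Mat1a*, *Gnmt* and *Bhmt*, which make and use S-adenosylmethionine or rebuild methionine, all fell (log2 FC -0.70 ± 0.18, adjusted p = 0.00253, log2 FC -0.86 ± 0.20, adjusted p = 0.000969 and log2 FC -0.81 ± 0.30, adjusted p = 0.0355, lost without TCDD liver 1, 2, 3 or 5 or vehicle liver 2, 4 or 5, at up to 0.13, and lost without TMM scaling, at 0.0878). *Chdh*, choline dehydrogenase, rose (log2 FC 0.81 ± 0.09, adjusted p = 6.87e-09). In purine breakdown 5 of 13 rose (*Xdh*, *Slc22a12*, *Aprt*, *Urad* and *Hprt*) and 4 fell (*Uox*, *Gda*, *Adk* and *Slc2a9*). *Slc2a9* (adjusted p = 0.0135) lost its call without TCDD liver 5, at 0.0501, and without TMM scaling, at 0.176. *Xdh*, which makes uric acid, was 179, 221, 197, 228 and 178 CPM and 402, 349, 345, 472 and 348 CPM (log2 FC 0.93 ± 0.10, adjusted p = 2.12e-09), and *Uox*, which removes it, was 4242, 3854, 3442, 4031 and 3163 CPM and 1549, 1536, 1721, 2320 and 1409 CPM (log2 FC -1.13 ± 0.18, adjusted p = 4.74e-06). The maker was higher and the remover lower in all 5 treated livers. *Slc22a12*, a urate carrier known from kidney, had 0 reads in the vehicle livers and 17 in the TCDD livers, at least 4.73-fold higher.

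Genes of secreted proteins and hepatocyte identity were lower in part. Of 37 plasma and coagulation proteins 19 fell and only *Serpina6*, the corticosteroid-binding globulin, rose, with a median of -0.29 (6 rose and 15 fell without TMM scaling). *Serpina7*, the thyroxine-binding globulin, was 101, 39.9, 47.95, 29.6 and 23 CPM in the vehicle livers and 1.58, 1.09, 0.884, 0.947 and 0.481 CPM in the TCDD livers (log2 FC -5.54 ± 0.46, adjusted p = 8e-13), *Serpina6* was 612, 725, 905, 729 and 926 CPM and 1569, 1675, 1438, 1294 and 1647 CPM (log2 FC 0.97 ± 0.18, adjusted p = 5.57e-05), and *Fgb*, fibrinogen beta, was 3687, 4422, 4049, 3556 and 3362 CPM and 1908, 1940, 2280, 2201 and 2023 CPM (log2 FC -0.88 ± 0.16, adjusted p = 4.65e-05). These genes were separated between groups in opposite directions. *F7*, coagulation factor VII, fell (log2 FC -0.74 ± 0.09, adjusted p = 1.56e-08), and albumin did not pass, at 118500, 115700, 109500, 122700 and 90980 CPM and 92820, 95110, 102200, 96320 and 141300 CPM (log2 FC -0.08 ± 0.11, adjusted p = 0.65). Among complement genes 9 of 25 fell and 5 rose (*C6*, *C8b* and the macrophage products *C1qa*, *C1qb* and *C1qc*), with a median of -0.17 that became 0.04 without TMM scaling. *C1qa* (adjusted p = 0.0465) lost its call without TCDD liver 2, 3 or 5 or vehicle liver 1, 2, 3 or 4, at up to 0.122. *C1qb* (adjusted p = 0.0326) lost its call without TCDD liver 2, 3 or 5 or vehicle liver 1, 2, 3 or 4, at up to 0.106. *C1qc* (adjusted p = 0.0268) lost its call without TCDD liver 2, 3 or 5 or vehicle liver 2 or 3, at up to 0.0965. *C8b* (adjusted p = 0.0377) lost its call without TCDD liver 2, 3 or 4 or vehicle liver 1, 4 or 5, at up to 0.129. *Hc*, complement C5, fell by 1.02 on the log2 scale (SE 0.12, adjusted p = 3.29e-09), *C9* fell (log2 FC -0.90 ± 0.18, adjusted p = 0.000113), and *C3* did not pass (log2 FC -0.10 ± 0.11, adjusted p = 0.552).

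Members of the acute phase list that passed mostly fell. Of 29, 11 fell and 3 rose (*Saa1*, *Saa3* and *Serpina3g*), with a median of -0.19 that became 0.02 without TMM scaling (7 rose and 11 fell there). *Hp*, haptoglobin, was 1911, 1683, 2070, 1541 and 2075 CPM in the vehicle livers and 309.5, 291, 436, 484 and 370.4 CPM in the TCDD livers (log2 FC -2.29 ± 0.26, adjusted p = 4.49e-09). *Saa1*, serum amyloid A, was 26.2, 18.9, 13.6, 24.01 and 14.1 CPM and 61.0, 46.4, 78.8, 42.0 and 65.4 CPM (log2 FC 1.60 ± 0.60, adjusted p = 0.0393, lost without TCDD liver 1, 3 or 5 or vehicle liver 2, 3, 4 or 5, at up to 0.0847), and its close copy *Saa2* and *Lcn2* did not pass (log2 FC 1.47 ± 0.62, adjusted p = 0.0677, passed without TMM scaling, at 0.0304 and log2 FC 0.51 ± 0.59, adjusted p = 0.556). Every treated liver was below the controls for *Hp* and above them for *Saa1*. The metallothionein *Mt1* was 93.2, 529, 291, 198 and 358 CPM and 25.4, 37.03, 58.7, 62.3 and 63.3 CPM (log2 FC -2.58 ± 0.57, adjusted p = 0.000516), and *Mt2* also fell without overlap (log2 FC -3.24 ± 0.70, adjusted p = 0.000383), though 73.5% of its exon bases are shared with another gene model. The iron hormone genes *Hamp* and *Hamp2*, close copies, fell (log2 FC -1.30 ± 0.29, adjusted p = 0.000643 and log2 FC -3.81 ± 0.47, adjusted p = 2.79e-08), within an iron and heme list of 26 in which 9 fell and *Hmox1* and *Bmp6* rose (median -0.06, and 0.15 without TMM scaling, where 6 rose and 4 fell). *Bmp6* (adjusted p = 0.0423) lost its call without TCDD liver 1, 2 or 5 or vehicle liver 2, 3 or 5, at up to 0.155.

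Of 31 hepatocyte transcription factors, 8 fell and 0 rose, with a median of -0.25 (3 rose and 3 fell without TMM scaling, with a median of -0.05). *Cebpa* was 234, 211, 180.0, 273 and 277 CPM in the vehicle livers and 139.7, 107, 107, 130.4 and 144 CPM in the TCDD livers (log2 FC -0.90 ± 0.16, adjusted p = 1.9e-05), all lower, while *Hnf4a* did not pass (log2 FC 0.11 ± 0.14, adjusted p = 0.572, passed without TMM scaling, at 0.0441). The major urinary proteins, made in the liver under growth hormone control and excreted as pheromone carriers, had 6 of 20 lower and only *Mup21* higher. *Mup3* was 3019, 2687, 3692, 2004 and 3627 CPM and 68.2, 150.4, 125, 294 and 92.7 CPM (log2 FC -4.36 ± 0.32, adjusted p = 3.7e-14), with liver 4 highest of the treated livers and all of them under the controls. The list's median was -0.62, and -1.43 without liver 4. *Mup20* did not pass (log2 FC 0.70 ± 0.43, adjusted p = 0.231), and reads of these near-identical genes that aligned to several places were left out. In the growth hormone and IGF axis 5 of 21 fell (*Ghr*, *Igfbp2*, *Igfbp4*, *Prlr* and *Serpina12*) and *Socs1* and *Igf2r* rose, with a median of -0.12 that became 0.08 without TMM scaling (5 rose and 4 fell there). *Socs1* (adjusted p = 0.0105) lost its call without TCDD liver 5, at 0.0755. *Prlr* lost its call without TMM scaling, at adjusted p = 0.13. *Ghr*, the growth hormone receptor, was 660.3, 794, 854, 732 and 795 CPM and 299, 271, 315, 452 and 295 CPM (log2 FC -1.23 ± 0.13, adjusted p = 3.03e-10), and *Igf1* did not pass (log2 FC -0.37 ± 0.16, adjusted p = 0.0732, passed without TCDD liver 3 or vehicle liver 4, at 0.0421 and 0.0447).

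Genes that differ between the sexes in mouse liver had members that fell and members that rose. Of 22 female-biased genes 9 fell and 1 rose (2 rose without TMM scaling, median -0.74), and of 20 male-biased genes 5 fell (*Slco1a1*, *Hsd3b5*, *Susd4*, *Elovl3* and *Serpina4-ps1*) and 3 rose (*Cyp2d9*, *Ces4a* and *C6*), with a median of -0.01 that became 0.20 without TMM scaling. The falls, 40.9% and 25%, stand beside 14.1% of all genes. The rises, 4.55% and 15%, were not above the 15.5% of all genes. *Hsd3b5* (adjusted p = 0.0248) lost its call without TCDD liver 1 or 3 or vehicle liver 3, at up to 0.0784. *Serpina4-ps1* (adjusted p = 0.0429) lost its call without TCDD liver 1, 2, 3, 4 or 5 or vehicle liver 3 or 5, at up to 0.25, and without TMM scaling, at 0.0548. *Cyp2b9*, a female-biased P450, was 659, 592, 528, 698 and 567 CPM in the vehicle livers and 371, 257, 349, 392 and 327 CPM in the TCDD livers (log2 FC -0.84 ± 0.12, adjusted p = 4.86e-07), all lower. *Elovl3*, male-biased, was 2.12, 3.05, 3.33, 0.805 and 2.43 CPM and 0.225, 0.343, 0.318, 0.390 and 0 CPM (log2 FC -3.09 ± 0.75, adjusted p = 0.00146), also all lower. Liver zonation genes divided as well: of 24 pericentral genes 8 rose and 7 fell (median -0.08, and 0.13 without TMM scaling), and of 25 periportal genes 12 fell and 5 rose (*Aldh1b1*, *Etnppl*, *Fbp1*, *Hsd17b6* and *Hsd17b13*; median -0.50). *Etnppl* (adjusted p = 0.0146) lost its call without TCDD liver 5, at 0.0501. *Hsd17b13* (adjusted p = 0.03) lost its call without TCDD liver 2 or 5 or vehicle liver 3, 4 or 5, at up to 0.0898. *Glul*, the glutamine synthetase of the cells next to the central vein, fell (log2 FC -0.46 ± 0.16, adjusted p = 0.0227, lost without TCDD liver 2 or 5 or vehicle liver 4, at up to 0.091, and lost without TMM scaling, at 0.198), the Wnt target *Axin2* rose (log2 FC 0.65 ± 0.19, adjusted p = 0.00852), and the histidase gene *Hal* of the portal side fell (log2 FC -1.05 ± 0.20, adjusted p = 9.21e-05). *Hsd17b6* was 254, 229, 318, 191 and 217 CPM and 954, 984, 955, 711 and 960.0 CPM (log2 FC 1.92 ± 0.24, adjusted p = 4.02e-08). Retinoid genes had 10 of 29 lower and *Rarg* and *Bco1* higher (median -0.31, with 6 higher and 6 lower without TMM scaling), among them *Adh4* and *Aldh1a1*, which oxidize retinol and retinal (log2 FC -1.48 ± 0.20, adjusted p = 1.88e-07 and log2 FC -0.96 ± 0.18, adjusted p = 7.12e-05). Of 22 clock genes 3 fell (*Bhlhe40*, *Cry2* and *Rora*) and *Csnk1e* rose (median -0.41, with 1 higher and 1 lower without TMM scaling). These shares, 13.6% and 4.55%, were not above the 14.1% and 15.5% of all genes. *Rora* (adjusted p = 0.0242) lost its call without TCDD liver 1 or 5 or vehicle liver 2, at up to 0.081, and without TMM scaling, at 0.287. *Cry2* (adjusted p = 0.0374) lost its call without TCDD liver 1, 2 or 3 or vehicle liver 2 or 4, at up to 0.122, and without TMM scaling, at 0.255. *Csnk1e* (adjusted p = 0.034) lost its call without TCDD liver 2, 3 or 5 or vehicle liver 2 or 3, at up to 0.107. *Dbp*, an output of the clock, was 172, 184, 145, 158 and 170.5 CPM and 94.7, 82.5, 37.6, 62.4 and 30.4 CPM, all lower, and did not pass (log2 FC -1.43 ± 0.60, adjusted p = 0.0661).

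Many inflammatory genes rose, and TCDD liver 4 lay closer to the controls than the other treated livers. Of 40 macrophage and monocyte genes 23 rose and 0 fell, with a median of 1.13, and without liver 4 the count was 28. Its list median against the vehicle mean was 0.11 in liver 4 and 0.77 to 1.29 in the others. *Gpnmb*, a glycoprotein of lipid-laden macrophages, was 0.141, 0.127, 0, 0.248 and 0.152 CPM in the vehicle livers and 11.4, 32.9, 9.72, 7.63 and 27.6 CPM in the TCDD livers (log2 FC 6.99 ± 0.61, adjusted p = 3.77e-12). *Itgax* (CD11c) was 0.566, 0.191, 0.493, 0.371 and 0.455 CPM and 1.71, 2.98, 2.09, 1.11 and 3.45 CPM (log2 FC 2.42 ± 0.41, adjusted p = 1.41e-05), and *Lgals3*, galectin-3, was 2.33, 1.21, 2.22, 2.17 and 3.34 CPM and 10.6, 19.1, 12.2, 4.62 and 12.3 CPM (log2 FC 2.37 ± 0.38, adjusted p = 4.32e-06). All 5 treated livers were above the controls for these genes, liver 4 the least. *Cd68* rose with overlap (log2 FC 1.08 ± 0.35, adjusted p = 0.0177, lost without TCDD liver 2 or 3, at up to 0.0718), and *Trem2* rose with overlap (log2 FC 1.55 ± 0.51, adjusted p = 0.0198, lost without TCDD liver 2 or 5 or vehicle liver 2, at up to 0.0809). *Adgre1*, which encodes F4/80, did not pass with all livers (log2 FC 1.06 ± 0.46, adjusted p = 0.0788, passed without TCDD liver 4, at 0.0401, and passed without TMM scaling, at 0.0323), and *Lyz2* did not pass (log2 FC 0.79 ± 0.40, adjusted p = 0.135). Of 9 Kupffer cell markers *C1qa*, *C1qb* and *C1qc* rose, each a call that leaving out 1 liver could end, as given above, and *Clec4f*, which marks resident Kupffer cells, was 71.7, 55.01, 70.7, 65.7 and 89.2 CPM and 71.2, 114, 121, 46.5 and 107 CPM and did not pass (log2 FC 0.38 ± 0.30, adjusted p = 0.359). The part of cell number in these results was not tested.

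Antigen presentation showed the same split between liver 4 and the rest. Of 15 MHC class II genes 10 rose and 0 fell, with a median of 1.76, and 10 rose without liver 4 too. *Cd74*, the invariant chain, was 24.2, 19.97, 23.7, 31.2 and 34.0 CPM in the vehicle livers and 100, 125, 112, 64.1 and 175 CPM in the TCDD livers (log2 FC 2.11 ± 0.38, adjusted p = 2.84e-05). *H2-Ab1*, a class II beta chain, was 12.1, 9.67, 10.1, 15.9 and 18.6 CPM and 57.1, 69.8, 56.6, 32.7 and 95.5 CPM (log2 FC 2.22 ± 0.40, adjusted p = 3.56e-05), and *Ciita*, the regulator of class II genes, was 0.354, 0.382, 0.740, 0.681 and 0.657 CPM and 2.48, 4.01, 2.83, 2.34 and 3.29 CPM (log2 FC 2.38 ± 0.43, adjusted p = 3.29e-05). Every treated liver exceeded every control, with liver 4 lowest. Of 41 chemokines and receptors 20 rose and 4 fell (*Ccl9*, *Ccl25*, *Ccl27a* and *Cxcl12*), with a median of 1.02. Of these 41, 15 had a mean under 10 reads. With 0.5 CPM added to each level, the list median against the vehicle mean was 0.08 to 0.63 in the TCDD livers. The list's summed share of reads was lower, at 0.0636 to 0.0797% in the vehicle livers and 0.0439 to 0.0510% in the TCDD livers. *Ccr1*, a receptor of myeloid cells, was 0.0708, 0.0636, 0, 0.124 and 0.101 CPM and 1.94, 1.60, 1.77, 1.11 and 2.24 CPM (log2 FC 4.46 ± 0.44, adjusted p = 8.53e-11), and *Ccl22* was 0.0708, 0.127, 0, 0.124 and 0.101 CPM and 0.766, 1.09, 0.955, 0.557 and 1.84 CPM (log2 FC 3.49 ± 0.63, adjusted p = 3.05e-05). Both were separated between groups. *Ccl2*, the monocyte attractant, was 0.354, 0, 0.185, 0.371 and 0.253 CPM and 1.397, 2.003, 0.743, 0.0557 and 1.76 CPM, with liver 4 among the controls (log2 FC 2.30 ± 0.60, adjusted p = 0.00275), and *Ccr2*, its receptor, rose without overlap (log2 FC 1.12 ± 0.31, adjusted p = 0.00493). *Ccl9* fell from 107, 118, 122, 113 and 114 CPM to 43.9, 47.6, 61.4, 63.7 and 46.5 CPM (log2 FC -1.12 ± 0.13, adjusted p = 3.76e-09).

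Lymphocyte and neutrophil genes were low in all livers. Of 26 T and NK cell genes 8 rose and 0 fell (10 rose without liver 4 and 13 without TMM scaling), with *Cd8a* at 0.212, 0, 0.123, 0.433 and 0.303 CPM in the vehicle livers and 0.857, 0.801, 0.601, 0.279 and 0.882 CPM in the TCDD livers (log2 FC 1.61 ± 0.53, adjusted p = 0.0187, lost without vehicle liver 2, at 0.0601), while *Cd3e* and *Nkg7* did not pass (log2 FC 0.76 ± 0.41, adjusted p = 0.169 and log2 FC 0.95 ± 0.43, adjusted p = 0.0967, passed without vehicle liver 5, at 0.0479, and passed without TMM scaling, at 0.0365). *Foxp3*, the factor of regulatory T cells, which AhR ligands are known to affect, had 1 and 16 reads over the groups, a ratio of 13.3 (counting interval 2.073 to 559.5). It shares 18.6% of its exon bases with *Flicr* on the same strand and 12.9% with *Ccdc22* on the opposite strand. The part of these overlaps in its reads was not tested. Of 17 B and plasma cell genes 5 rose, among them *Pou2af1*, *Ms4a1*, *Ighm* and *Igkc*, and 2 fell (*Mzb1* and *Sdc1*). Without liver 4, 8 rose and 1 fell, and without TMM scaling 9 rose and 0 fell. *Igkc* (adjusted p = 0.0353) lost its call without TCDD liver 1, 2 or 5 or vehicle liver 1, 2, 3 or 4, at up to 0.0808. *Mzb1* (adjusted p = 0.0432) lost its call without TCDD liver 1, 3, 4 or 5 or vehicle liver 4 or 5, at up to 0.113, and without TMM scaling, at 0.0915. *Sdc1* lost its call without TMM scaling, at adjusted p = 0.0518. Of 16 neutrophil genes 5 rose (*Mmp8*, *Cxcr2*, *S100a8*, *S100a9* and *Csf3r*) and 0 fell. The neutrophil median of 2.58 became 1.44 with the 3 genes absent from the vehicle livers set at their lower bound. *S100a9*, a subunit of calprotectin, was 0.566, 0.254, 0.246, 0.248 and 0.505 CPM and 2.71, 3.61, 2.51, 0.947 and 3.53 CPM (log2 FC 2.84 ± 0.76, adjusted p = 0.00373). Its treated values were all above the controls, and liver 4 was the lowest. Erythroid markers moved beside these lists: *Hbb-bs*, a beta globin with close copies, was 46.6, 39.05, 39.01, 40.9 and 34.4 CPM and 68.02, 69.9, 106, 40.9 and 91.2 CPM (log2 FC 0.91 ± 0.30, adjusted p = 0.0194, lost without TCDD liver 3, at 0.074), and the part of blood in the samples was not tested.

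Cytokine, interferon and Toll-like receptor genes were mixed. Of 35 cytokine and NF-kB genes 13 rose and 5 fell (*Il18*, *Il1rap*, *Tnfsf10*, *Il15* and *Nfkbia*), with a median of 0.68 (16 rose and 2 fell without TMM scaling). *Tnfsf10* (adjusted p = 0.0177) lost its call without TCDD liver 5, at 0.0586, and without TMM scaling, at 0.0968. *Il15* (adjusted p = 0.0355) lost its call without TCDD liver 1, 2 or 5 or vehicle liver 2, 3 or 5, at up to 0.084, and without TMM scaling, at 0.138. *Nfkbia* (adjusted p = 0.0283) lost its call without TCDD liver 1 or 5 or vehicle liver 3 or 5, at up to 0.0913, and without TMM scaling, at 0.208. *Tgfb2*, a fibrogenic cytokine, was 0.778, 0.636, 0.370, 0.186 and 0.303 CPM in the vehicle livers and 10.6, 8.76, 4.42, 6.13 and 4.81 CPM in the TCDD livers (log2 FC 3.95 ± 0.33, adjusted p = 1.13e-12), all higher. *Il1b* was 0.283, 0.191, 0.185, 0.186 and 0.556 CPM and 1.13, 2.003, 1.56, 0.334 and 1.60 CPM (log2 FC 2.17 ± 0.54, adjusted p = 0.00192), and *Tnf* was 0.0708, 0, 0, 0.124 and 0.152 CPM and 0.541, 0.515, 0.389, 0.0557 and 0.561 CPM (log2 FC 2.40 ± 0.65, adjusted p = 0.00413). In both, liver 4 lay among the controls and the other treated livers above them. *Il6* had 1 read over the vehicle livers and 4 over the TCDD livers and did not pass. *Nos2*, inducible nitric oxide synthase, had 0 and 15 reads, at least 4.17-fold higher (adjusted p = 0.0147, lost without TCDD liver 2, at 0.0529). Interferon-stimulated genes gave 6 rises and 5 falls (*Bst2*, *Ifit1*, *Mx2*, *Rtp4* and *Xaf1*) among 38 (10 rose and 1 fell without TMM scaling), shares of members near those of all genes. *Xaf1* (adjusted p = 0.0487) lost its call without TCDD liver 1, 2, 3, 4 or 5 or vehicle liver 1, 2, 3 or 5, at up to 0.129, and without TMM scaling, at 0.25. *Bst2*, *Mx2* and *Rtp4* lost their calls without TMM scaling, at adjusted p = 0.112, 0.0575 and 0.0507. *Usp18*, which dampens interferon signalling, was 13.5, 17.0, 19.2, 14.4 and 12.4 CPM and 40.8, 39.1, 41.2, 30.6 and 51.6 CPM (log2 FC 1.41 ± 0.21, adjusted p = 1.88e-06), while *Ifit1* was 9.41, 14.4, 15.6, 9.28 and 12.5 CPM and 6.27, 6.70, 7.07, 5.29 and 6.65 CPM (log2 FC -0.94 ± 0.19, adjusted p = 0.000239). *Isg15* and *Irf7* did not pass (log2 FC -0.43 ± 0.23, adjusted p = 0.155 and log2 FC -0.51 ± 0.21, adjusted p = 0.063, passed without TCDD liver 5, at 0.0384). Of 25 Toll-like receptor and adaptor genes 7 rose and 3 fell (*Tlr5*, *Tirap* and *Ticam1*), and 12 rose and 1 fell without TMM scaling. *Tirap* (adjusted p = 0.0134) lost its call without vehicle liver 4, at 0.0777, and without TMM scaling, at 0.25. *Ticam1* (adjusted p = 0.0454) lost its call without TCDD liver 1, 2 or 4 or vehicle liver 1, 2, 4 or 5, at up to 0.14, and without TMM scaling, at 0.53. *Tlr5*, the flagellin receptor, was 6.58, 11.6, 10.3, 11.5 and 8.85 CPM and 2.03, 1.49, 1.56, 1.73 and 1.12 CPM (log2 FC -2.60 ± 0.21, adjusted p = 4.96e-13), and *Tlr1* was 0.708, 0.445, 0.616, 0.743 and 1.77 CPM and 3.47, 4.64, 3.15, 2.06 and 4.17 CPM (log2 FC 1.98 ± 0.45, adjusted p = 0.000652). The receptors were thus separated between groups in opposite directions, and *Tlr2* did not pass (log2 FC 0.83 ± 0.38, adjusted p = 0.1, passed without TMM scaling, at 0.0351).

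**Figure D4:**
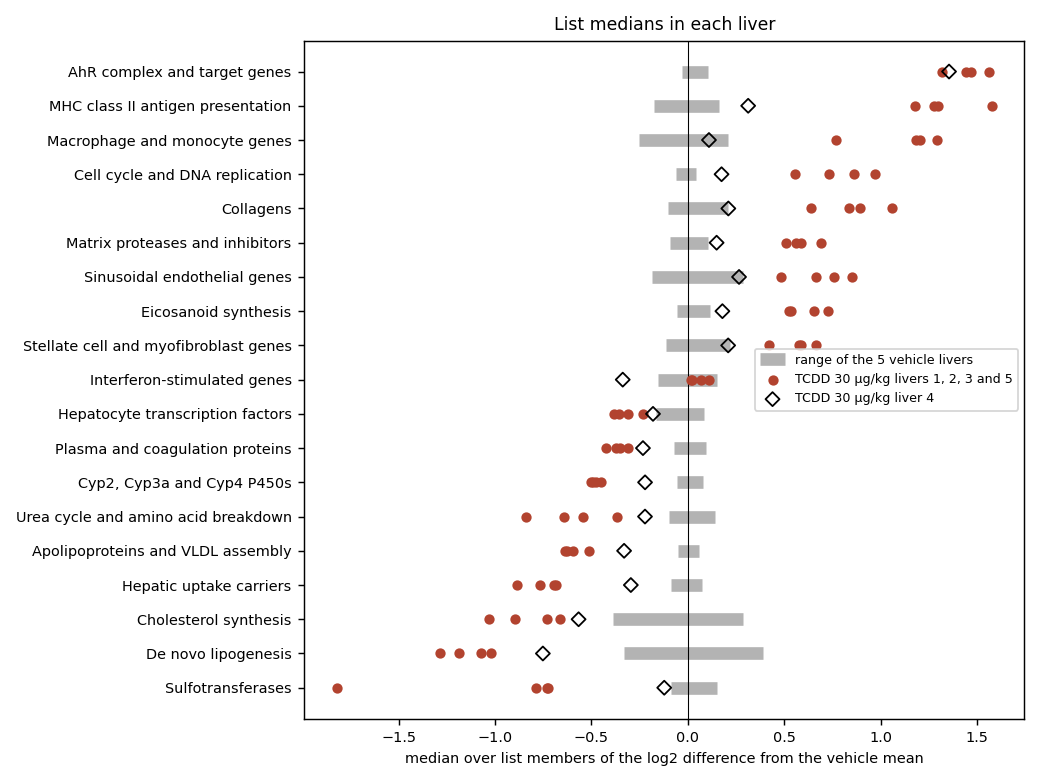
Median over the members of 19 gene lists of the log2 difference from the mean of the vehicle livers (horizontal axis), with a grey bar for the range of the 5 vehicle livers, red points for TCDD livers 1, 2, 3 and 5 and an open diamond for TCDD liver 4. Liver 4 lies within the other treated livers for the AhR list (1.35, against 1.32 to 1.56) and nearer to the controls for macrophage genes (0.11, against 0.77 to 1.29) and for sulfotransferases (-0.12, against -1.82 to -0.73).

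Genes of the fibrotic matrix rose with the same weaker response in liver 4. Of 30 collagen genes 16 rose and 3 fell (*Col27a1*, *Col20a1* and *Col18a1*), with a median of 0.87. The list median was 0.21 in liver 4 and 0.64 to 1.06 in the other treated livers, and 16 rose without liver 4 as well. *Col1a1*, the alpha-1 chain of type I collagen, was 8.21, 7.31, 4.99, 5.38 and 4.55 CPM in the vehicle livers and 28.2, 47.2, 29.4, 12.1 and 44.6 CPM in the TCDD livers (log2 FC 2.41 ± 0.33, adjusted p = 2.52e-07), without overlap, and *Col3a1* and *Col4a1* rose with overlap (log2 FC 1.31 ± 0.24, adjusted p = 3.12e-05 and log2 FC 1.03 ± 0.25, adjusted p = 0.00119). *Col4a3*, a basement membrane chain best known from the kidney glomerulus, was 0.708, 3.75, 1.36, 2.23 and 1.57 CPM and 41.9, 57.7, 49.9, 65.1 and 53.7 CPM (log2 FC 4.79 ± 0.56, adjusted p = 7.93e-09), and *Col4a4* beside it was 0.354, 0.509, 0.308, 0.186 and 0.253 CPM and 4.19, 5.84, 6.01, 5.91 and 5.69 CPM (log2 FC 4.09 ± 0.45, adjusted p = 1.82e-09). For this pair liver 4 was at or near the top of the treated livers. *Col27a1* went down, from 17.8, 15.4, 31.6, 13.2 and 35.6 CPM to 3.16, 4.41, 4.03, 5.29 and 4.73 CPM (log2 FC -2.40 ± 0.41, adjusted p = 1.44e-05).

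In the stellate cell and myofibroblast list 18 of 40 rose and only *Tpm2*, a tropomyosin, fell, with a median of 0.63. *Timp1*, a metalloprotease inhibitor, rose (log2 FC 2.26 ± 0.68, adjusted p = 0.00974, log2 FC 2.96 without vehicle liver 1). The activation marker *Acta2* and the receptor *Pdgfrb* did not pass (log2 FC 0.72 ± 0.35, adjusted p = 0.126, passed without TMM scaling, at 0.0388 and log2 FC 0.42 ± 0.20, adjusted p = 0.103, passed without TMM scaling, at 0.0171). Among matrix proteases and their inhibitors 16 of 28 rose and 3 fell (*Fap*, *Ctsl* and *Mmp15*), with a median of 0.91. The list's summed share of reads was lower, at 0.0877 to 0.101% in the vehicle livers and 0.0618 to 0.071% in the TCDD livers. *Mmp15* lost its call without TMM scaling, at adjusted p = 0.0694. *Mmp13*, a collagenase, was 0.495, 0, 0.0616, 0.309 and 0.202 CPM in the vehicle livers and 4.42, 10.9, 3.75, 2.67 and 4.89 CPM in the TCDD livers (log2 FC 4.63 ± 0.46, adjusted p = 1.34e-10), and *Mmp12*, the elastase of macrophages, was 0.212, 0.382, 0.123, 0.309 and 0.303 CPM and 3.52, 17.4, 4.84, 1.11 and 6.17 CPM (log2 FC 4.59 ± 0.57, adjusted p = 3.18e-08, log2 FC 3.83 without TCDD liver 2). All treated livers were above the controls. *Plau* and *Mmp2* rose with overlap (log2 FC 1.01 ± 0.32, adjusted p = 0.0151, lost without TCDD liver 2, at 0.063 and log2 FC 0.84 ± 0.30, adjusted p = 0.0295, lost without TCDD liver 2 or 5 or vehicle liver 3, 4 or 5, at up to 0.116). Of 34 laminin, integrin and adhesion genes 17 rose and 4 fell (*Itga7*, *Itgb5*, *Fn1* and *Itgav*), and 22 rose and 1 fell without TMM scaling. *Itgb5* and *Itgav* lost their calls without TMM scaling, at adjusted p = 0.0852 and 0.162. *Lamb3* was 1.91, 3.56, 1.60, 2.66 and 2.07 CPM and 6.31, 9.21, 6.47, 6.69 and 8.98 CPM (log2 FC 1.67 ± 0.24, adjusted p = 5.8e-07), *Thbs1*, thrombospondin 1, was 1.13, 0.763, 0.185, 0.557 and 0.809 CPM and 3.56, 5.04, 3.08, 0.947 and 4.33 CPM (log2 FC 2.29 ± 0.42, adjusted p = 4.76e-05), and *Fn1*, fibronectin, of which hepatocytes make the plasma form, fell (log2 FC -0.44 ± 0.12, adjusted p = 0.00337, lost without TMM scaling, at 0.13). All treated livers exceeded the controls for *Lamb3*, and liver 4 was among them for *Thbs1*. *Itgb1* did not pass (log2 FC -0.09 ± 0.08, adjusted p = 0.379).

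Vascular, biliary and fetal genes differed in how many moved. Of 32 sinusoidal endothelial genes 22 rose and 0 fell (24 rose without liver 4), with a median of 0.61. *Pecam1* (CD31) was 12.9, 8.20, 12.8, 10.1 and 9.30 CPM in the vehicle livers and 22.9, 22.8, 22.6, 14.5 and 22.9 CPM in the TCDD livers (log2 FC 0.99 ± 0.18, adjusted p = 5.23e-05), and *Vwf*, von Willebrand factor, was 4.39, 4.20, 4.25, 5.63 and 3.94 CPM and 10.2, 11.7, 13.5, 8.25 and 9.14 CPM (log2 FC 1.24 ± 0.24, adjusted p = 9.04e-05). Both were higher in every treated liver. *Wnt2*, which endothelial cells of the central vein secrete, rose (log2 FC 1.36 ± 0.30, adjusted p = 0.000482), and the sinusoidal receptors *Lyve1* and *Stab2* did not pass (log2 FC -0.20 ± 0.27, adjusted p = 0.637 and log2 FC 0.23 ± 0.16, adjusted p = 0.293, passed without TMM scaling, at 0.0384). Of 33 biliary and progenitor genes 5 rose (*Dmbt1*, *Prom1*, *Krt23*, *St14* and *Aqp1*) and 0 fell (9 rose without TMM scaling), a share close to that of all genes. *Krt19*, *Krt7*, *Epcam* and *Sox9*, the usual markers of bile ducts, did not pass (log2 FC 0.48 ± 0.40, adjusted p = 0.386, log2 FC 0.55 ± 0.35, adjusted p = 0.24, log2 FC -0.21 ± 0.26, adjusted p = 0.598 and log2 FC -0.31 ± 0.27, adjusted p = 0.413). *Prom1*, the progenitor marker CD133, was 10.4, 3.75, 3.14, 6.38 and 3.03 CPM and 50.7, 17.5, 24.97, 22.8 and 29.2 CPM (log2 FC 2.46 ± 0.45, adjusted p = 4.33e-05), all higher. Among 18 fetal and oncofetal genes 8 rose and only *Peg3* fell. *Dlk1*, which is expressed in hepatoblasts, had 0 reads in the vehicle livers and 128 in the TCDD livers, at least 35.58-fold higher, with 0.947, 2.17, 0.424, 0.111 and 4.41 CPM in the 5 treated livers, lowest in liver 4. *Afp* rose with overlap (log2 FC 0.98 ± 0.31, adjusted p = 0.0147, lost without TCDD liver 5, at 0.0517), and *Igf2* and *H19* did not pass (log2 FC -0.15 ± 0.33, adjusted p = 0.786 and log2 FC -0.85 ± 0.72, adjusted p = 0.41).

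More cell cycle genes rose than fell. Of 41 cell cycle and DNA replication genes 23 rose and 3 fell (*Tk1*, *E2f8* and *Cdk2*), with a median of 1.24, and 25 rose without liver 4 (27 rose and 1 fell without TMM scaling). *E2f8* (adjusted p = 0.0288) lost its call without TCDD liver 1 or 3 or vehicle liver 1 or 3, at up to 0.0957, and without TMM scaling, at 0.0586. *Cdk2* (adjusted p = 0.0143) lost its call without vehicle liver 5, at 0.0745, and without TMM scaling, at 0.195. *Mki67*, the marker of cycling cells, was 1.27, 1.27, 0.986, 1.98 and 1.21 CPM in the vehicle livers and 5.23, 10.4, 5.20, 2.67 and 7.29 CPM in the TCDD livers (log2 FC 2.19 ± 0.57, adjusted p = 0.00317). *Top2a*, topoisomerase II, was 0.637, 0.636, 0.863, 0.866 and 0.607 CPM and 3.43, 6.30, 5.20, 1.78 and 6.01 CPM (log2 FC 2.64 ± 0.58, adjusted p = 0.000464), and *Foxm1* was 0.0708, 0.191, 0, 0.0619 and 0.152 CPM and 0.676, 0.973, 0.919, 0.390 and 1.84 CPM (log2 FC 3.18 ± 0.69, adjusted p = 0.000409). All treated livers were above the controls, and liver 4 was the lowest of them. *Tk1*, thymidine kinase, ran against the rest, from 30.4, 34.5, 32.5, 34.5 and 47.6 CPM to 3.92, 3.49, 4.74, 11.5 and 5.93 CPM (log2 FC -2.61 ± 0.29, adjusted p = 2.59e-09), and *Ccnd1*, cyclin D1, did not pass (log2 FC 0.21 ± 0.40, adjusted p = 0.746). *Tk1* shares 83 exon bases (1.597% of its own) with *Afmid* on the opposite strand, and *E2f8* shares 610 with *Gm2788* on the opposite strand. *Afmid* and *Gm2788* also fell, the strand setting is not given, and their part in these calls was not tested. Which cells were cycling was not measured. Of 28 p53 targets and growth arrest genes 12 rose and 5 fell (*Bbc3*, *Btg1*, *Cdkn1c*, *Trp53inp1* and *Ei24*), and 14 rose and 3 fell without TMM scaling. *Cdkn1c* (adjusted p = 0.0123) lost its call without TCDD liver 2, at 0.0509. *Trp53inp1* (adjusted p = 0.0415) lost its call without TCDD liver 1 or 3 or vehicle liver 2, 3, 4 or 5, at up to 0.138, and without TMM scaling, at 0.196. *Ei24* (adjusted p = 0.0477) lost its call without TCDD liver 1, 2, 3 or 4 or vehicle liver 1, 2, 4 or 5, at up to 0.15, and without TMM scaling, at 0.614. *Cdkn1a* (p21) was 0.708, 0.890, 1.97, 0.805 and 0.607 CPM and 6.27, 13.1, 13.6, 3.90 and 29.7 CPM (log2 FC 3.73 ± 0.83, adjusted p = 0.000553), without overlap, and *Mdm2* rose slightly (log2 FC 0.33 ± 0.10, adjusted p = 0.0143, lost without TCDD liver 2, at 0.053).

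In the integrated stress and unfolded protein response 8 of 33 rose and 5 fell (*Pdia4*, *Pdia6*, *Ern1*, *Hsp90b1* and *Calr*), with a median of -0.10 that became 0.12 without TMM scaling (9 rose and 2 fell there). *Pdia4* (adjusted p = 0.0244) lost its call without TCDD liver 5 or vehicle liver 1 or 4, at up to 0.0713, and without TMM scaling, at 0.187. *Calr* (adjusted p = 0.0308) lost its call without TCDD liver 1, 2 or 5 or vehicle liver 1, 3 or 4, at up to 0.089, and without TMM scaling, at 0.245. *Ern1* lost its call without TMM scaling, at adjusted p = 0.0583. *Asns*, asparagine synthetase, was 0.424, 0.191, 0.308, 0.619 and 0.505 CPM in the vehicle livers and 4.28, 9.67, 2.30, 1.28 and 1.44 CPM in the TCDD livers (log2 FC 3.19 ± 0.56, adjusted p = 2.1e-05, log2 FC 2.502 without TCDD liver 2), and *Psat1* of serine synthesis was 1.27, 0.572, 0.431, 0.433 and 0.253 CPM and 3.88, 8.36, 1.63, 0.669 and 2.24 CPM (log2 FC 2.53 ± 0.50, adjusted p = 0.000108, log2 FC 1.86 without TCDD liver 2). *Asns* was higher in all treated livers, while for *Psat1* liver 4 overlapped the controls. *Atf4*, *Ddit3* and *Gdf15* did not pass (log2 FC -0.20 ± 0.11, adjusted p = 0.175, log2 FC -0.10 ± 0.20, adjusted p = 0.758 and log2 FC -0.88 ± 0.52, adjusted p = 0.209). Eicosanoid synthesis, which makes prostaglandins and leukotrienes, had 15 of 28 higher and 5 lower (*Ptgds*, *Ephx2*, *Pla2g6*, *Ptges3* and *Lta4h*), with a median of 0.92 (18 rose and 2 fell without TMM scaling). *Pla2g6* (adjusted p = 0.0115) lost its call without vehicle liver 2, at 0.0672, and without TMM scaling, at 0.13. *Ptges3* (adjusted p = 0.0319) lost its call without TCDD liver 2 or 5 or vehicle liver 1, 3 or 5, at up to 0.116, and without TMM scaling, at 0.329. *Lta4h* lost its call without TMM scaling, at adjusted p = 0.827. *Pla2g12a*, a secreted phospholipase, was 9.55, 9.67, 10.7, 7.24 and 12.1 CPM and 33.6, 30.7, 25.2, 29.8 and 35.0 CPM (log2 FC 1.64 ± 0.21, adjusted p = 6.85e-08), *Ptgs1* (COX-1) was 11.3, 10.1, 13.9, 10.2 and 12.8 CPM and 22.04, 23.9, 30.3, 15.3 and 24.8 CPM (log2 FC 0.995 ± 0.25, adjusted p = 0.00188), and *Ptges* was 0.141, 0, 0.0616, 0.0619 and 0.253 CPM and 1.62, 1.37, 0.849, 0.501 and 1.36 CPM (log2 FC 3.32 ± 0.60, adjusted p = 3.77e-05, log2 FC 4.02 without vehicle liver 5). None of these overlapped. *Ptgs2* (COX-2) had 1 and 11 reads over the groups, a ratio of 9.17 (counting interval 1.333 to 394.9, adjusted p = 0.0324, lost without TCDD liver 1 or 2 or vehicle liver 1, 2, 4 or 5, at up to 0.0971). Of the genes that the study used as PCR references, *Hprt* rose (log2 FC 0.29 ± 0.09, adjusted p = 0.0152, lost without TCDD liver 1, at 0.06), *B2m* fell (log2 FC -0.51 ± 0.13, adjusted p = 0.00184, lost without TMM scaling, at 0.0583), and *Actb* and *Gapdh* did not pass (log2 FC 0.33 ± 0.19, adjusted p = 0.209, passed without TMM scaling, at 0.0332 and log2 FC -0.16 ± 0.33, adjusted p = 0.757). Of 30 ribosomal protein genes *Rpl3*, *Rpl4* and *Rplp0* rose and *Rpl5* and *Rps2* fell (5 rose and 2 fell without liver 4, and 10 rose and 1 fell without TMM scaling). Some of these control genes had few counted reads. *Gapdh* stood at 2.97 to 7.21 CPM in the vehicle livers, where the 30 ribosomal protein genes together took 0.151 to 0.174% of reads. Reads that aligned to several places were left out, and their part in these calls was not tested. *Rpl3* (adjusted p = 0.00755) lost its call without TCDD liver 5, at 0.184. *Rplp0* (adjusted p = 0.0145) lost its call without TCDD liver 5, at 0.142. *Rps2* (adjusted p = 0.0245) lost its call without TCDD liver 5 or vehicle liver 1 or 2, at up to 0.114, and without TMM scaling, at 0.29.

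Over all genes, several of the steepest rises were in genes that adult liver is not known to use. *Col9a2*, a chain of cartilage type IX collagen (chr4:121039385-121055322, plus strand), had 3 reads over the 5 vehicle livers and 11473 over the 5 TCDD livers, a ratio of 3189 (counting interval 1091 to 15470). It stood at 94.8, 99.5, 123, 172 and 85.3 CPM in the treated livers, highest in liver 4. *Nptx1*, neuronal pentraxin 1, was 0.0708, 0, 0.123, 0.743 and 0.303 CPM in the vehicle livers and 309.6, 193, 217, 199 and 254 CPM in the TCDD livers (log2 FC 9.81 ± 0.56, adjusted p = 9.75e-18, log2 FC 10.70 without vehicle liver 4). *Ovol1*, an epithelial zinc finger factor, had 1 and 1046 reads, a ratio of 872.3 (counting interval 156.2 to 34490), and *Ecel1*, an endopeptidase of the nervous system, had 3 and 1359, a ratio of 377.8 (counting interval 129 to 1834). With 0 vehicle reads, *Hmx1*, a homeobox gene, was at least 102.3-fold higher, the hair follicle keratin gene *Krt25* at least 65.88-fold, *Trim15* at least 52.54-fold and the noncoding *C130080G10Rik* at least 51.98-fold. *Pnliprp1*, a pancreatic lipase relative, was 0, 0, 0.0616, 0.124 and 0.0505 CPM and 32.1, 17.5, 29.1, 9.81 and 17.3 CPM (log2 FC 8.60 ± 0.62, adjusted p = 1.46e-14, log2 FC 9.20 without vehicle liver 4). Pancreatic acinar markers did not move with it: 0 of 7 rose and *Cela2a* fell. *Cela2a* (adjusted p = 0.0237) lost its call without TCDD liver 3 or 4 or vehicle liver 2 or 3, at up to 0.158. All 5 treated livers carried each of these transcripts, liver 4 included.

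Among the steepest falls over all genes, besides *Hao1*, *Slco1a1* and the sulfotransferases, were *Chrna4*, a nicotinic receptor subunit, at 42.5, 10.8, 6.47, 31.5 and 11.1 CPM in the vehicle livers and 1.08, 0.458, 0.389, 1.89 and 0.401 CPM in the TCDD livers (log2 FC -4.58 ± 0.72, adjusted p = 3.45e-06), and the gene model *Gm2788*, at 8.63, 8.84, 14.5, 7.37 and 10.9 CPM and 0.361, 0.286, 0.212, 0.557 and 0.240 CPM (log2 FC -4.91 ± 0.62, adjusted p = 3.47e-08). *Car3*, carbonic anhydrase III, abundant in liver and in fat, was 2136, 1776, 1911, 2203 and 2403 CPM and 255, 158, 167, 301 and 319 CPM (log2 FC -3.12 ± 0.24, adjusted p = 8.86e-14). The other adipocyte markers did not pass, and *Adipoq* had 2 and 0 reads over the groups. Measured by the change in CPM, the 12 largest gains together rose from a median of 0.678% of reads to 3.85%, and the 12 largest losses dropped from 10.6% to 5.998%. The gains included *Selenbp1*, a selenium-binding protein, at 194, 195, 167, 221 and 220.5 CPM and 587, 492, 496, 719 and 720.5 CPM (log2 FC 1.59 ± 0.15, adjusted p = 3.95e-11), and *Slc1a2*, a glutamate carrier of pericentral hepatocytes (log2 FC 0.92 ± 0.16, adjusted p = 2.7e-05). The losses included *Serpina3k* (log2 FC -0.94 ± 0.22, adjusted p = 0.000882), *Selenop*, the selenium carrier of plasma (log2 FC -0.67 ± 0.11, adjusted p = 1.54e-05), and *Ahsg*, fetuin A (log2 FC -0.63 ± 0.12, adjusted p = 9.77e-05).

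Few genes differed between the 2 highest doses. Against 10 µg/kg, 75 genes rose (0.429%) and 32 fell (0.183%) at 30 µg/kg, of which 57 (0.326%) and 13 (0.0744%) were DEGs. Without TCDD liver 4 the counts were 118 and 156, and 105 of the 107 genes passed under both. Since both doses differ from the same controls, the levels are given side by side. Mean levels in the vehicle, 10 and 30 µg/kg livers (± SD, 5 livers each) were 273 ± 28.8, 17.1 ± 7.35 and 2.30 ± 3.24 CPM for *Hao1*, 128 ± 36.02, 14.2 ± 6.72 and 2.35 ± 3.42 CPM for *Sult3a1* and 2086 ± 247, 624 ± 263 and 240.0 ± 74.6 CPM for *Car3*. The 30 µg/kg level was lower than the 10 µg/kg level for each (log2 FC -2.90 ± 0.37, adjusted p = 3.68e-06, log2 FC -2.57 ± 0.50, adjusted p = 0.00289 and log2 FC -1.38 ± 0.22, adjusted p = 0.000264). *Inmt* was 1328 ± 117, 464 ± 124 and 223 ± 89.6 CPM (log2 FC -1.05 ± 0.25, adjusted p = 0.0269), *Tlr5* was 9.77 ± 2.11, 3.81 ± 0.507 and 1.58 ± 0.332 CPM (log2 FC -1.25 ± 0.21, adjusted p = 0.000595) and the carboxylesterase *Ces3a* was 657 ± 138, 265 ± 102 and 117 ± 73.7 CPM (log2 FC -1.18 ± 0.25, adjusted p = 0.0088). *Car1*, carbonic anhydrase I, stood at 9.54 ± 2.91, 4.68 ± 2.20 and 1.74 ± 0.660 CPM (log2 FC -1.42 ± 0.30, adjusted p = 0.0085). Their group means stepped down from the vehicle through 10 to 30 µg/kg.

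**Figure D5:**
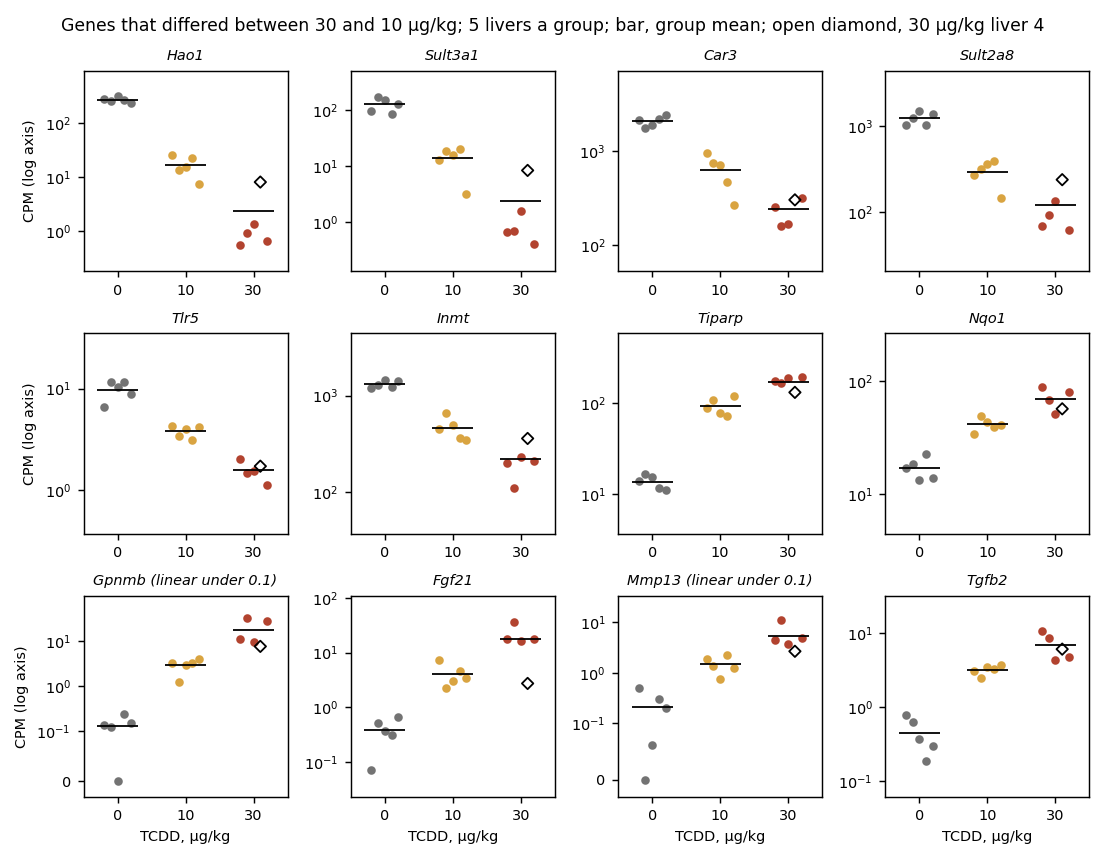
CPM of 12 genes in each of the 5 vehicle, 5 TCDD 10 µg/kg and 5 TCDD 30 µg/kg livers on log axes (linear under 0.1 where a liver had 0 reads), with a bar at each group mean and an open diamond for 30 µg/kg liver 4. *Hao1*, *Sult3a1*, *Car3*, *Sult2a8*, *Tlr5* and *Inmt* step down in group mean with dose and *Tiparp*, *Nqo1*, *Gpnmb*, *Fgf21*, *Mmp13* and *Tgfb2* step up.

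On the rising side, *Tiparp* was 13.7 ± 2.36, 92.6 ± 20.02 and 169.6 ± 24.9 CPM in the vehicle, 10 and 30 µg/kg livers (log2 FC 0.87 ± 0.16, adjusted p = 0.002 between the doses) and *Nqo1* was 17.0 ± 3.74, 41.3 ± 5.58 and 68.5 ± 15.5 CPM (log2 FC 0.73 ± 0.18, adjusted p = 0.0334). *Nfe2l2* also differed between the doses (log2 FC 0.37 ± 0.09, adjusted p = 0.0346), while *Cyp1a1* and *Cyp1a2* did not pass between them, at mean levels of 7.50 ± 6.33, 6654 ± 874 and 7627 ± 1186 CPM and 1105 ± 122, 14620 ± 1561 and 17360 ± 1889 CPM. *Gpnmb* was 0.134 ± 0.0884, 2.98 ± 1.04 and 17.9 ± 11.6 CPM (log2 FC 2.56 ± 0.41, adjusted p = 0.000254), *Mmp12* was 0.266 ± 0.0999, 0.829 ± 0.302 and 6.61 ± 6.32 CPM (log2 FC 2.96 ± 0.48, adjusted p = 0.000254), *Mmp13* was 0.214 ± 0.198, 1.499 ± 0.576 and 5.33 ± 3.24 CPM (log2 FC 1.80 ± 0.35, adjusted p = 0.00304) and *Tgfb2* was 0.455 ± 0.245, 3.21 ± 0.482 and 6.95 ± 2.67 CPM (log2 FC 1.11 ± 0.26, adjusted p = 0.0263). *Fgf21* was 0.383 ± 0.220, 4.12 ± 2.03 and 17.9 ± 11.7 CPM (log2 FC 2.10 ± 0.44, adjusted p = 0.00849). The means of these macrophage, matrix and hormone genes stepped up with dose, with a wide spread over the 30 µg/kg livers. Other genes with few vehicle reads also passed, among them *Nbl1*, a BMP antagonist, at 0.324 ± 0.0871, 0.730 ± 0.497 and 8.39 ± 3.76 CPM (log2 FC 3.45 ± 0.38, adjusted p = 3.72e-07), and the ion channel gene *Trpv4*, at 0.256 ± 0.154, 2.86 ± 1.30 and 14.8 ± 6.22 CPM (log2 FC 2.35 ± 0.31, adjusted p = 4.73e-06). *Parm1*, *Spint1* and *Htra1*, the last 2 a protease inhibitor and a serine protease, also passed (log2 FC 2.09 ± 0.27, adjusted p = 4.73e-06, log2 FC 1.83 ± 0.21, adjusted p = 5.92e-07 and log2 FC 1.68 ± 0.22, adjusted p = 4.73e-06), as did the carbonyl reductase *Cbr3* (log2 FC 1.504 ± 0.31, adjusted p = 0.00705) and the potassium channel gene *Kcnj8* (log2 FC 1.39 ± 0.20, adjusted p = 2.27e-05). Of the 107 genes, 73 rose and 31 fell against the vehicle in the same direction. The other 3, *Gpx6*, *Trp53i13* and *Rasl10b*, did not pass against the vehicle. Both comparisons used the same 30 µg/kg livers, and the genes were picked by 1 of them. Agreement in direction, and the steps in group means, are thus partly built in and are not a separate test of a dose trend.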

How the data were processed

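RNA of whole livers was sequenced from TruSeq libraries. The authors removed adaptors and low-complexity reads, mapped the reads to GRCm38 with Bowtie and TopHat 1.4.1, and deposited raw read counts per Ensembl gene from HTSeq 0.6.1, without normalization. Reads that aligned to several places were not counted on genes, so near-identical genes lose reads. Lines that name no gene were left out of library sizes (9.25 to 12.7% of uniquely mapped reads fell outside genes and 1.4 to 2.07% were ambiguous in the 2 groups). The strand setting is not given in the sources used here, so reads of overlapping genes on opposite strands may be mixed. Exons shared with another gene made up over 20% of the exon bases of *Afmid*, *C130080G10Rik*, *Ccnd1*, *Ctsl*, *Fdps*, *Gm12265*, *Igf2*, *Ldhd*, *Mt2*, *Pklr*, *Sds*, *Slc13a2*, *Slc22a12*, *Ube2c*, *Ugt1a5*, *Ugt1a7c* and *Ugt1a9*. Each overlap was taken with a single other gene, and overlaps with several genes were not added up. The study's own normalization was not repeated.

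Groups came from the dose labels. Genes with more than 4 reads in any liver (17464 of 39179) entered the quasi-likelihood fit of edgeR 4.0.16 (R 4.3.3) after TMM scaling, with all 45 livers, 1 term per group and Benjamini-Hochberg adjustment. The scripts were tested on simulated data. The p-values measure differences against the spread between livers within groups. That spread was estimated from all 45 livers, and not only from the groups compared. The gene lists and members were chosen with earlier results of these data known. Named genes were the core members of the lists, whatever their result. They were also the largest rise and fall of each list and the 12 largest rises and falls over all genes, given no overlap between groups, 10 or more reads on average in the 10 livers and an adjusted p under 0.05, and the 12 largest gains and losses in mean CPM with an adjusted p under 0.05. Some genes that the rule names are not reported here. Promoters were those of the 3 AhR genes with the largest rises that have a RefSeq entry. A gene with 0 reads in a group was set against 3 reads over the group, and intervals of ratios are 95% intervals for counting error only. Alternatives were DESeq2 1.42.0, its size factors, no TMM scaling, other filters, the 10 livers alone and leaving out each liver. Positions are from the GENCODE annotation of GRCm38, and symbols matched 17270 of the genes tested.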

Additional observations from a re-analysis of the deposited data

Results flagged for a closer look

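Single livers far from the other 4 of their group were sought in 606 groups of 5 values (the levels of the named genes and the list medians). A 95% criterion for 1 outlying value was used, and 46 were found. It marks about 1 in 20 groups, or 30.3, where values are normal and independent, which levels of many genes in 1 liver are not. A group with 0 reads in 4 livers and reads in only 1 is always marked. The 46 are therefore not tested against 30.3. TCDD liver 4 was the outlying liver for 14 genes and for 2 list medians, more than any other liver. It was on the high side, toward the controls, for several genes that fell. Among its high values, *Cyp2d9* was 488 CPM against 281 to 329 in the others, *Cyp7a1* was 583 CPM against 156 to 253 in the others, *Cyp7b1* was 37.7 CPM against 19.4 to 22.1 in the others and *Fdps* was 37.2 CPM against 23.2 to 26.3 in the others. Likewise *Ghr* was 452 CPM against 271 to 315 in the others, *Hao1* was 8.08 CPM against 0.541 to 1.34 in the others and *Slc10a1* was 826 CPM against 515 to 600.5 in the others. In the same liver *Sult2a7* was 3.18 CPM against 0.321 to 0.857 in the others, *Sult3a1* was 8.41 CPM against 0.401 to 1.59 in the others and *Sult3a2* was 0.0557 CPM against 0 in the others. It was low for *Axin2* at 9.69 CPM against 13.4 to 14.9 in the others, *Hsd17b6* at 711 CPM against 954 to 984 in the others, *Isg15* at 5.57 CPM against 8.31 to 8.79 in the others and *Pecam1* at 14.5 CPM against 22.6 to 22.9 in the others. The median of Cyp2, Cyp3a and Cyp4 P450s against the vehicle mean was -0.22 in liver 4 and -0.50 to -0.45 in the other TCDD livers. The median of interferon-stimulated genes against the vehicle mean was -0.34 in liver 4 and 0.01 to 0.11 in the other TCDD livers.

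The other TCDD livers stood apart for few genes. In TCDD liver 1 *Col4a4* was 4.19 CPM against 5.69 to 6.01 in the others and *Hmgcs1* was 362 CPM against 207 to 250 in the others. In TCDD liver 2 *Hsd3b5* was 0.0572 CPM against 0 in the others, *Mmp13* was 10.9 CPM against 2.67 to 4.89 in the others and *Ppara* was 170.0 CPM against 107 to 117 in the others. In TCDD liver 3 *Slc13a2* was 0.0354 CPM against 0 in the others. In TCDD liver 5 *Alb* was 141300 CPM against 92820 to 102200 in the others and *Slc13a3* was 95.6 CPM against 57.9 to 68.4 in the others.

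Among the vehicle livers the outlying values were spread over all 5. In vehicle liver 1 *Col3a1* was 52.6 CPM against 26.7 to 34.1 in the others, *Il6* was 0.0708 CPM against 0 in the others, *Lcat* was 313 CPM against 368 to 389 in the others and *Lpl* was 28.7 CPM against 12.9 to 16.4 in the others. For the same liver, *Pkm* was 7.08 CPM against 4.07 to 4.93 in the others, *Prdx1* was 678 CPM against 574 to 600.3 in the others, and *Slc7a11* was 0.0708 CPM against 0 in the others. In vehicle liver 2 *Foxp3* was 0.0636 CPM against 0 in the others. In vehicle liver 3 *Adipoq* was 0.123 CPM against 0 in the others, *Cdkn1a* was 1.97 CPM against 0.607 to 0.89 in the others, *Gapdh* was 7.21 CPM against 2.97 to 3.84 in the others and *Mup21* was 5.24 CPM against 3.09 to 3.64 in the others. For the same liver, *Ptgs2* was 0.0616 CPM against 0 in the others. In vehicle liver 4 *Ddit3* was 2.35 CPM against 5.73 to 7.03 in the others, *Mki67* was 1.98 CPM against 0.986 to 1.27 in the others and *Vwf* was 5.63 CPM against 3.94 to 4.39 in the others. In vehicle liver 5 *Ecel1* was 0.152 CPM against 0 in the others, *Il1b* was 0.556 CPM against 0.185 to 0.283 in the others, *Itgb1* was 155 CPM against 204 to 213 in the others and *Ovol1* was 0.0505 CPM against 0 in the others. For the same liver, *Tk1* was 47.6 CPM against 30.4 to 34.5 in the others and *Tlr1* was 1.77 CPM against 0.445 to 0.743 in the others. Where the other 4 livers had 0 reads, the outlying value came from 1 to 3 reads.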

How the results depend on the processing

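No named gene that passed changed direction under any setting tried, while 27 of 320 named genes, none of them past the threshold, changed sign under at least 1 setting, 21 of them without TMM scaling. List medians are given here relative to the median of all genes under the same setting. Those of ABC exporters, purine breakdown, interferon-stimulated genes, male-biased genes, PCR reference genes and ribosomal protein genes changed sign under at least 1 setting. Without TMM scaling 4996 genes rose and 1222 fell against vehicle, and 19 fell against 10 µg/kg, while 15 named genes gained and 13 lost their call. With the Wald test of DESeq2, 56 genes fell against 10 µg/kg, the neutrophil median was 2.256 and 2 named genes lost their call. With the stricter filter of edgeR (filterByExpr), medians moved to 1.597 for AhR genes, -0.02473 for purine breakdown, 1.207 for neutrophil genes, 0.3841 for cytokines and 0.3255 for fetal genes, since fewer genes with few reads were tested. Fitting the 10 livers alone gave 13 more calls and 4 fewer among named genes. Leaving out 1 liver at a time, the genes that rose against 10 µg/kg numbered 52 to 118, those that fell 13 to 156, and the lower DEGs 8 to 26, each highest without TCDD liver 4 and lowest without liver 1 at 10 µg/kg, TCDD liver 2 and TCDD liver 1, respectively. Against vehicle, 2267 to 2867 genes rose and 2094 to 2626 fell. The list medians ranged from 1.885 to 2.11 for AhR genes, -0.3205 to -0.2135 for fatty acid oxidation, -0.006647 to 0.2654 for purine breakdown, -1.443 to -0.4923 for major urinary proteins, 2.239 to 2.962 for neutrophil genes, 0.6463 to 0.9842 for T and NK cell genes, 0.4412 to 0.7554 for cytokines, 0.3986 to 0.7168 for Toll-like receptors and 0.08581 to 0.2657 for biliary genes. The causes were not tested. No paired analysis was possible because the labels give no replicate numbers, and the liver numbers used here only follow the order of the sample records within a group.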

Other observations

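Outside the gene lists, *Hjurp*, which encodes a chaperone of the centromeric histone, was among the 12 genes with the largest gains in CPM. It lies at chr1:88262471-88277633 on the minus strand. Its level was 212, 248, 209, 219.6 and 234 CPM in the vehicle livers and 732, 662, 607, 782 and 573 CPM in the TCDD livers (log2 FC 1.58 ± 0.19, adjusted p = 1.32e-08 by the edgeR quasi-likelihood test). Every treated liver was above every control.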
